A study of Mus musculus with 12 samples.

Results

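The response of mouse bone marrow-derived macrophages (BMDMs) to 3 h of LPS alone was examined by RNA-seq. The comparison used 6 of the 12 samples of the series, 3 untreated (control) and 3 that received LPS (100 ng/ml, 3 h). All 6 came from wild-type mice aged 8 to 12 weeks, whose bone marrow cells were differentiated for 6 days in medium with L929 cell supernatant, a source of the macrophage growth factor M-CSF, and neither group received IL-4. The dose is as the labels give it, and the study's methods give it in a different unit. The other 6 samples, 3 given IL-4 at 20 ng/ml for 24 h and 3 given IL-4 and then LPS, enter only the last comparison and an alternative fit of all 12 samples. Expression was given as FPKM (fragments per kilobase of transcript, relative to the mapped fragments of the sample), and of 23847 rows in the tables, 10943 had an FPKM of at least 1 in any of the 6 samples and were tested.

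LPS is a glycolipid of the outer membrane of Gram-negative bacteria. CD14 and MD-2 hand it to Toll-like receptor 4 (TLR4), which signals through the adaptor MyD88 to NF-kB and MAP kinases and through the adaptor TRIF to IRF3 and type I interferon. Secreted interferon then acts back on the same cells through JAK and STAT proteins, and induced inhibitors limit both arms.

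Each group is 3 culture samples numbered 1 to 3. The study describes these RNA-seq data as averages of 3 individual animals, from fewer independent experiments than animals. Neither the study nor the labels say which sample came from which animal or experiment. The tests therefore measure the spread between these samples. The cells are a bulk culture, in which fewer cells of a type and less RNA per cell cannot be told apart. All 12 macrophage markers reached 1 FPKM, and they summed to between 22693 and 24005 FPKM in the control samples and between 19021 and 20284 FPKM in the LPS samples.

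FPKM totals were alike in the 6 samples, between 457583 and 466955. The number of rows at 1 FPKM or more was 10293 to 10323 in the control and 9342 to 9479 in the LPS samples. Absolute depth was not given by FPKM. Steps between low values gave relative depths of 1 to 3.30 with control replicate 1 set to 1, but only 36.3% to 45.3% of low rows lay on a step. Replicate 1 stood somewhat apart in both groups. Control replicate 1 had a Pearson r of 0.952 and 0.955 with the other control samples, against 0.974 between those. LPS replicate 1 stood apart too. It was the LPS sample closest to the control mean in 65.0% of the 880 rows higher by 2-fold or more and in 65.6% of the 2118 rows lower by 2-fold or more, and its Pearson r with the other LPS samples was 0.957 and 0.958, against 0.974 between those. Without it, 930 rows were higher and 2268 lower by 2-fold or more.

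LPS changed most of the measured transcriptome. Past an adjusted p of 0.05 (limma on log2(FPKM + 1), Benjamini-Hochberg over all 10943 rows), 1826 rows were higher with LPS (16.7% of those tested) and 6299 were lower (57.6%). A change of at least 2-fold was found for 880 rows upward (8.04%) and 2118 rows downward (19.4%). With 0.1 added to FPKM in place of 1, 1006 rows were higher and 3161 lower by 2-fold or more. On the log2(FPKM + 1) scale, 203 rows rose by at least 8-fold and 81 fell by as much. This scale bounds falls, which end at 0 FPKM, but not rises. The rows higher by 2-fold or more took 3.10% to 3.35% of the FPKM total in the control samples and 21.05% to 25.1% in the LPS samples. The rows lower by 2-fold or more took 9.86% to 9.998% in the control and 2.90% to 3.50% in the LPS samples.

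The balance of the calls depended on the scaling. The median log2 fold change of all tested rows was -0.46, and in the pairs that share a replicate number it was -0.40, -0.45 and -0.49. Since FPKM is relative to the total of its own library, a shift common to most rows cannot be told apart from a change in library composition. When the samples were shifted to a common median, 2920 rows were higher (26.7%) and 3923 lower (35.8%), and the median change was -0.11. Higher calls made up 22.5% of all calls as deposited and 42.7% after median scaling. By 2-fold or more, 1260 were then higher (11.5%) and 1018 lower (9.30%). All 1826 higher calls and all 880 of at least 2-fold were kept under this scaling. Of the 2118 rows lower by 2-fold or more, 2092 stayed lower past the threshold and 1018 stayed lower by 2-fold. So a gene is said to rise or fall when it passed the test on the deposited values, each list is also given after median scaling, and each list is read against the median of all rows. The counts within a list are likewise to be read beside the shares of all tested rows given above. In all 307 genes named by rule the control and LPS samples did not overlap. These are called rows, mostly picked for large changes, so the lack of overlap follows largely from the choice and adds no support. Among the 1826 higher and 6299 lower calls, 8033 rows did not overlap, and among all tested rows 77.1% did not. After median scaling 17 of the 307 lost the threshold and are pointed out. The largest adjusted p-value among the 307 was 0.0479.

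**Figure D1:**
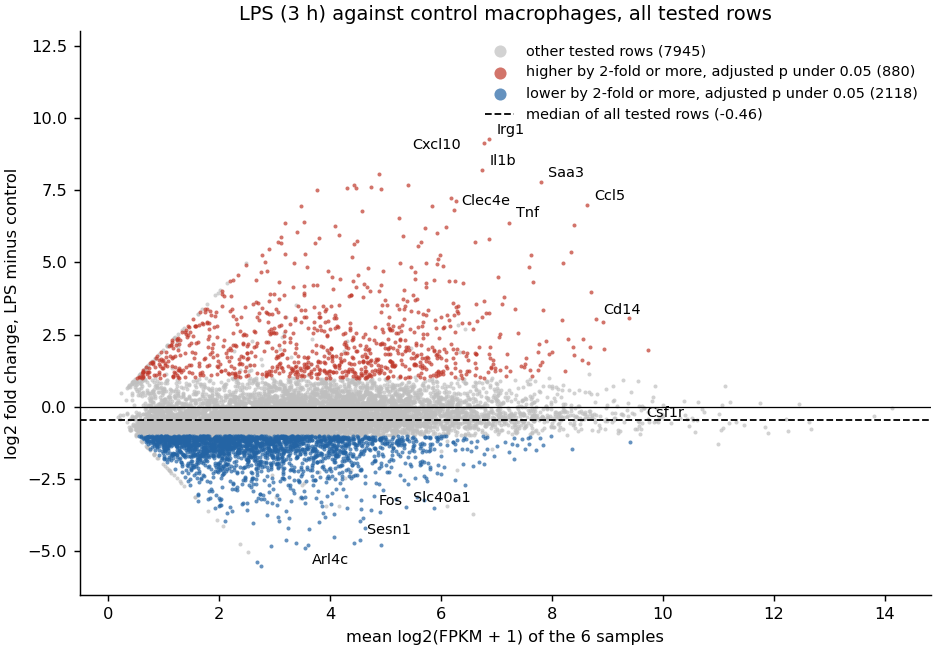
Log2 fold change (LPS minus control, on log2(FPKM + 1)) of each of 10943 tested rows against its mean level in the 6 samples. Rows higher by 2-fold or more are red (880), rows lower by 2-fold or more blue (2118, of which 1018 stayed lower by 2-fold after median scaling), and the dashed line is the median of all rows at -0.46, which lies below 0.

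The genes with the largest increases encode an enzyme of itaconate synthesis, chemokines, cytokines and their inhibitors. Irg1, which makes itaconate from a TCA cycle intermediate and lies at chr14:103047012-103056573 (mm10), had 3.94, 5.69 and 2.105 FPKM in the control samples and 2833, 2835 and 3017 FPKM in the LPS samples. Its log2 fold change of 9.27 (SE 0.26, adjusted p = 3.39e-06) was the largest, and the lowest LPS sample was far above the highest control sample. Cxcl10, an interferon-responsive chemokine for T cells at chr5:92346639-92348889, had 3.99, 4.79 and 2.45 FPKM in the control samples and 2429.6, 2602 and 2749 FPKM in the LPS samples. This was a log2 fold change of 9.13 (SE 0.19, adjusted p = 2.15e-06). Il1b, which encodes the pyrogenic cytokine IL-1β at chr2:129364580-129371120, had 6.44, 5.04 and 4.44 FPKM in the control samples and 1187, 2247 and 2314 FPKM in the LPS samples. Its log2 fold change was 8.197 (SE 0.28, adjusted p = 4.68e-06), and LPS replicate 1 was the lowest of the 3 LPS samples. Socs3, an inhibitor of JAK signalling, rose from 0.363, 1.43 and 0.8105 to 259, 666 and 645 FPKM (log2 fold change 8.05). Saa3, an acute-phase apolipoprotein, rose from 11.4, 20.9 and 11.4 to 1855, 4274 and 4469 FPKM (log2 fold change 7.77) and was among the most abundant transcripts after LPS. Ptgs2, the inducible cyclooxygenase COX-2, rose from 0.211, 1.06 and 0.326 to 177, 391 and 422 FPKM (log2 fold change 7.696).

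The other 4 of the 10 largest increases were 1 GTPase of host defence, 2 chemokines and a small GTPase. Gbp5 rose from 1.7995, 2.696 and 1.504 to 546, 619 and 651 FPKM (log2 fold change 7.67), with the 3 LPS samples close together. The neutrophil chemokine Cxcl1 rose from 0.335, 1.42 and 1.08 to 354, 419 and 347 FPKM (log2 fold change 7.63). Cxcl3, of the same chemokine group, rose from 0.411, 0.999 and 0.467 to 219.6, 368 and 357 FPKM (log2 fold change 7.58). Rnd1, a small GTPase, rose from 0.208, 0.685 and 0.454 to 90.5, 489 and 443 FPKM (log2 fold change 7.56), and here LPS replicate 1 was well below the other two. Without that sample its log2 fold change was 8.34. In all, 22 rows were under 1 FPKM in every control sample and at 10 FPKM or more in every LPS sample, and 32 rows went from under 10 FPKM in every control sample to at least 100 FPKM in every LPS sample.

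With microRNA and small nucleolar RNA rows set aside, the genes with the largest decreases encode receptors, small GTPases and regulators of the resting macrophage. Arl4c, an ARF-like GTPase and known target of the nuclear receptor LXR, had 62.6, 60.6 and 62.5 FPKM in the control samples and 1.91, 0.839 and 0.849 FPKM in the LPS samples. Its log2 fold change was -4.87 (SE 0.18, adjusted p = 6.28e-06). Lpar6, a receptor for lysophosphatidic acid, fell from 56.01, 32.2 and 34.8 to 0.854, 0.254 and 0.282 FPKM (log2 fold change -4.83). Cd300lb, an activating receptor of myeloid cells, fell from 153, 157 and 164 to 11.02, 2.96 and 3.04 FPKM (log2 fold change -4.78). In both, LPS replicate 1 kept the highest value of the LPS group. Cxcr4, the receptor for the bone marrow chemokine CXCL12, had 63.7, 46.8 and 48.1 FPKM in the control samples and 1.301, 0.98999 and 0.902 FPKM in the LPS samples, a log2 fold change of -4.697 (adjusted p = 3.65e-06).

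Tsc22d3, the glucocorticoid-induced leucine zipper protein GILZ, fell from 45.4, 42.7 and 44.8 to 0.856, 0.943 and 0.813 FPKM (log2 fold change -4.598). Sesn1, a sestrin that restrains the growth kinase mTORC1, fell from 114, 109.7 and 117 to 9.87, 1.93 and 2.35 FPKM (log2 fold change -4.59). LPS replicate 1 was several times above the other LPS samples for Sesn1, and without it the log2 fold change was -5.19. Arhgap25, which switches off the GTPase Rac, fell from 123, 99.5 and 108 to 5.73, 2.18 and 2.43 FPKM (log2 fold change -4.72). Arl11, an ARF-like GTPase of macrophages, fell from 71.9, 80.2 and 82.7 to 4.41, 2.07 and 1.64 FPKM (log2 fold change -4.49). Tmem86a, a membrane protein, fell from 58.2, 66.8 and 62.6 to 1.73, 1.37 and 0.915 FPKM (log2 fold change -4.78). Of rows at 10 FPKM or more in every control sample, 19 were under 1 FPKM in every LPS sample. These 9 decreases had adjusted p-values of at most 0.000225, and at most 0.000386 after median scaling.

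**Figure D2:**
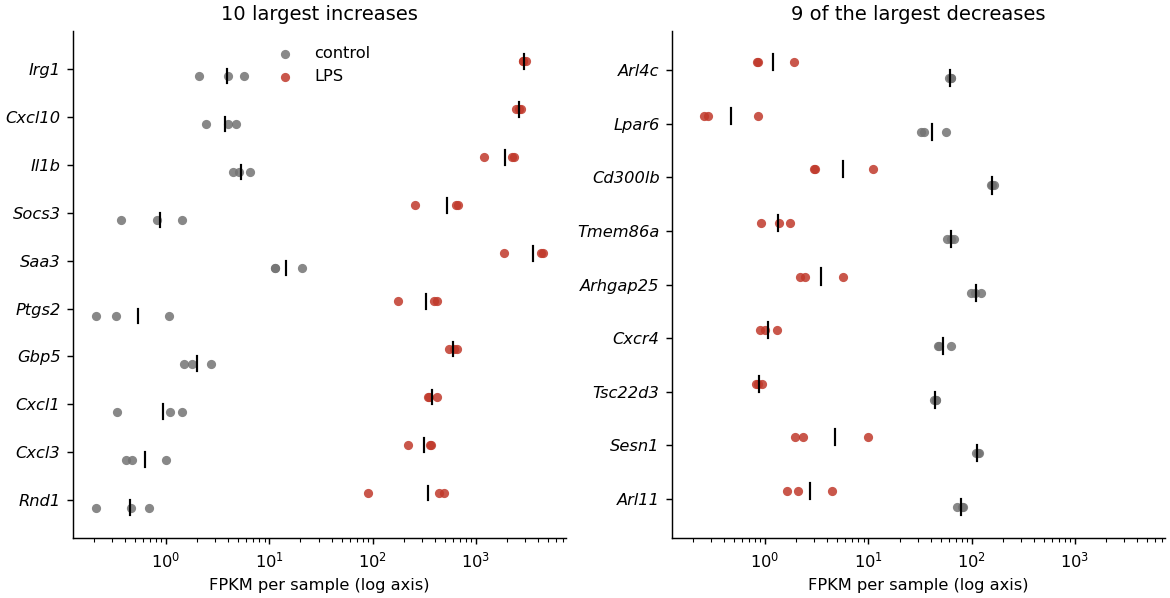
FPKM in each of the 3 control (grey) and 3 LPS (red) samples, on a log axis, for the 10 rows with the largest increase (left) and 9 of those with the largest decrease (right), microRNA and small nucleolar RNA rows set aside. Short black lines are group means. The groups are apart for every gene, and the spread within the LPS group is widest for Rnd1 and Sesn1.

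The sequence upstream of the start of 5 induced genes is shown because the 2 transcription factor families of the LPS response have well-defined DNA motifs. RefSeq promoter sequences (GRCm38.p6, the assembly of mm10) were matched by symbol and start site to 8382 of the 10943 rows, and the 250 bases before the start were searched on both strands. Each line runs 5′ to 3′ towards the start of the gene. Capitals mark the NF-kB motif (the kappaB consensus) in Cxcl10, Il6 and Tnfaip3, the interferon-stimulated response element (ISRE core, GAAANNGAAA) in Cxcl10 and Ifit1, and a forward TATA box (TATAAA) in Tnfaip3 and Irg1.
Cxcl10: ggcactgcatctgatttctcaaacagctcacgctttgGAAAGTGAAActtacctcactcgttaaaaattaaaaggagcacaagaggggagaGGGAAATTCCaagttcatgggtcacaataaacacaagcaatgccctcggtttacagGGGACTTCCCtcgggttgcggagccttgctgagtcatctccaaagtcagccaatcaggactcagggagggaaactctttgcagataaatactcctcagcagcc
Il6: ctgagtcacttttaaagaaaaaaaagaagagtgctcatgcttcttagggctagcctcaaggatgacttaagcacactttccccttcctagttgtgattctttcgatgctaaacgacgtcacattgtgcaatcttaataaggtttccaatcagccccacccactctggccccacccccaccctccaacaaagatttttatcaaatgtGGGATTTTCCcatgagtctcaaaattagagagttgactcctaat
Tnfaip3: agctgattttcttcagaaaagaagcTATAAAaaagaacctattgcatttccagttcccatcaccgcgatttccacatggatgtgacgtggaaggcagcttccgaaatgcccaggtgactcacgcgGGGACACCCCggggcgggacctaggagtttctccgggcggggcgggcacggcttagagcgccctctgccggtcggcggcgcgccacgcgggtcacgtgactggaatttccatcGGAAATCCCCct
Ifit1: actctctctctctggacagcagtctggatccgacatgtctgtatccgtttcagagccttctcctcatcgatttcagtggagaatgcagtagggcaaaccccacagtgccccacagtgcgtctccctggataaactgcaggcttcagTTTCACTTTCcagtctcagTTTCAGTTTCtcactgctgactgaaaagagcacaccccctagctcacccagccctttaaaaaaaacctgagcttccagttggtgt
Irg1: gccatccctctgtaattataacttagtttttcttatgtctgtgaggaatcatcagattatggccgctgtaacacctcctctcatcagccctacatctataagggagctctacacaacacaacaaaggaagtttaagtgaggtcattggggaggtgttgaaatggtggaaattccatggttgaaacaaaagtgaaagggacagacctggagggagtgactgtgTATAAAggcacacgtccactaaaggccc
The windows lie at chr5:92348890-92349139 on the minus strand, chr5:30012864-30013113 on the plus strand, chr10:19015411-19015660 on the minus strand, chr19:34640639-34640888 on the plus strand and chr14:103046762-103047011 on the plus strand. In Cxcl10 an ISRE core began 213 bases before the start and kappaB matches began at 159 and 103 bases. Il6 held 1 kappaB match, 44 bases before the start. Tnfaip3 held kappaB matches at 125 and 12 bases, and Ifit1 held a pair of ISRE cores on the opposite strand, at 104 and 85 bases. In Irg1 the TATA box began 28 bases before the start, and neither of the other motifs was found in this window. The windows shown are examples and not a representative set. Among induced genes not shown, the windows of Il1b, Socs3, Ptgs2 and Tnf held neither the kappaB consensus nor the ISRE core. Those of Gbp5, Cxcl1, Cxcl3, Saa3, Nfkbia and Rsad2 held a match.

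Of the 10 genes with the largest increases 9 had a matched window, of which 4 held the kappaB consensus, 3 the ISRE core, 3 a forward TATA box and 2 none of them. Of the 9 windows of the 10 largest decreases, 2 held a forward TATA box and none of the 9 held either of the other 2 motifs. Across all 8382 windows the kappaB consensus was found in 4.53%, and the share was 9.69% of the 671 windows of rows higher by 2-fold or more, 10.97% at 4-fold and 13.4% at 8-fold. The ISRE core was found in 2.91% of all windows and in 9.24%, 13.2% and 19.1% of the windows of rows higher by 2-fold, 4-fold and 8-fold. The AP-1 core (TGANTCA) was found in 4.31% of all windows and in 8.20%, 11.9% and 16.6% of those sets. The TATA box followed the same order, with 6.37% of all windows and 10.4%, 14.1% and 15.9% of those sets. The GC box (GGGCGG) ran the other way, with 61.3% of all windows and 54.7%, 47.0% and 45.2% of those sets. The full CRE (TGACGTCA) was rare, in 2.93% of all windows and 2.53% of those higher by 2-fold or more.

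For the 1644 windows of rows lower by 2-fold or more, the shares were 4.08% for the kappaB consensus, 2.01% for the ISRE core, 3.83% for the AP-1 core, 5.29% for the TATA box, 2.62% for the CRE and 63.7% for the GC box. At 4-fold and 8-fold lower, in 230 and 53 windows, they were 2.61% and 3.77% for the kappaB consensus, 1.30% and 1.89% for the ISRE core, 7.39% and 5.66% for the AP-1 core, 7.39% and 9.43% for the TATA box, and 61.3% and 66.04% for the GC box. The median number of CpG pairs per window was 16 over all windows and over those lower by 2-fold or more, and 12, 8 and 6 in those higher by 2-fold, 4-fold and 8-fold. A match is a string of letters and not a proven binding site, the motifs can overlap, and no test was made. In the first listed promoter of each of 27025 genes of the RefSeq table, expressed here or not, the kappaB consensus was found in 3.75%, the ISRE core in 3.04%, the AP-1 core in 6.87%, the TATA box in 12.97%, the CRE in 1.62% and the GC box in 32.9%.

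**Figure D3:**
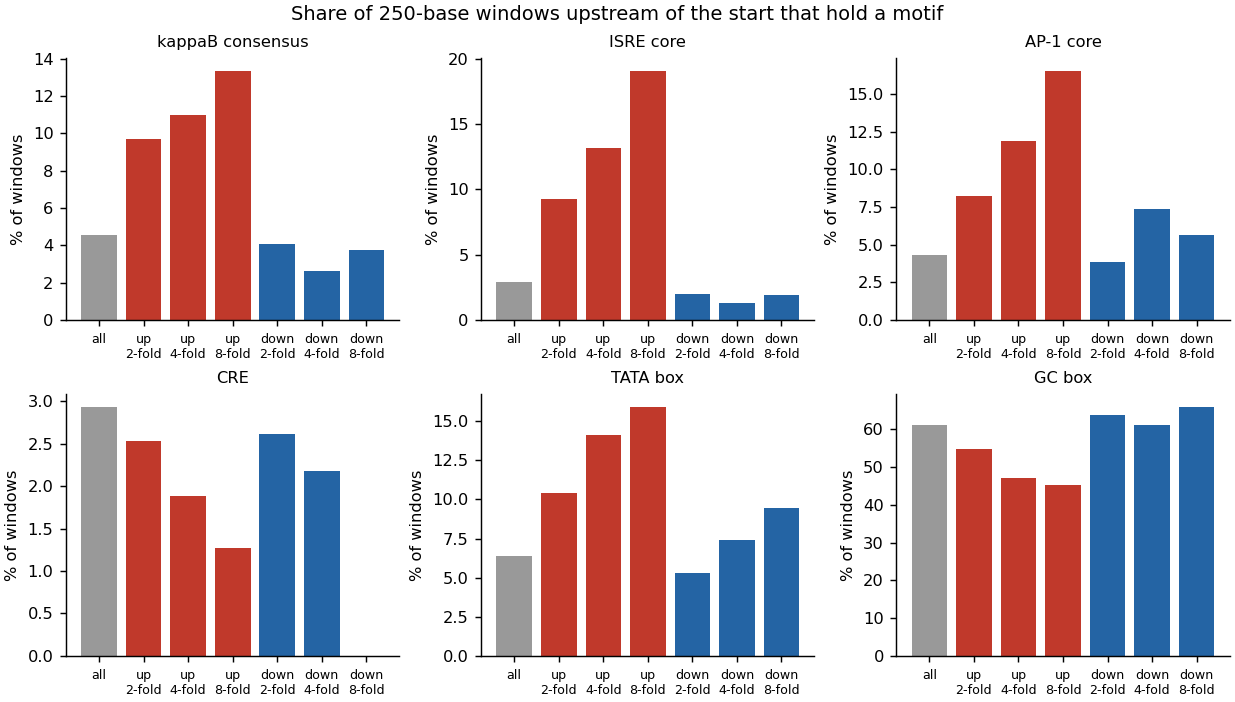
Percent of upstream windows (250 bases, both strands) that hold each of 6 motifs, for all tested rows with a matched window (grey), rows higher by at least 2-, 4- or 8-fold (red) and rows lower by as much (blue). The kappaB, ISRE, AP-1 and TATA bars rise with the size of the increase, and the GC box bars fall. The 8-fold sets were added after seeing the data.

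The sensing machinery changed in both directions. Of the Toll-like receptors, 4 rose and 4 fell among 9 tested, against 4 and 2 after median scaling, with a median log2 fold change of -0.47 (-0.12 after scaling). Tlr2, which senses bacterial lipoproteins, rose from 24.6, 31.96 and 32.7 to 214, 234 and 235 FPKM (log2 fold change 2.91). Its partners moved the same way: Tlr1 rose from 29.1, 28.5 and 28.1 to 111, 88.2 and 93.1 FPKM (log2 fold change 1.73). Tlr6 rose from 15.02, 12.5 and 12.95 to 32.1, 30.4 and 32.4 FPKM (log2 fold change 1.18). Tlr4, the LPS receptor itself, fell from 25.2, 21.6 and 22.1 to 13.5, 7.51 and 8.15 FPKM (log2 fold change -1.199) with an adjusted p of 0.00204. Tlr13, which senses bacterial ribosomal RNA, fell from 146, 121 and 124 to 38.6, 14.95 and 15.9 FPKM (log2 fold change -2.57). Among the 17 LPS coreceptors and TLR adaptors, 15 were tested, of which 8 rose and 5 fell (9 and 4 after median scaling), and the median log2 fold change was 0.597 (0.95 after scaling). Cd14, the LPS-binding coreceptor, had 144, 153 and 163 FPKM in the control samples and 1155, 1348 and 1310.4 FPKM in the LPS samples, a log2 fold change of 3.04. Irak2, a kinase-like component that sustains TLR signalling, rose from 12.5, 11.1 and 11.2 to 74.6, 74.4 and 74.6 FPKM (log2 fold change 2.58). Irak3, its inhibitory relative, rose from 12.5, 10.1 and 12.1 to 65.7, 56.8 and 60.3 FPKM (log2 fold change 2.303). Irak4, the first kinase of the MyD88 complex, fell from 17.4, 17.2 and 16.5 to 9.32, 7.16 and 7.67 FPKM (log2 fold change -1.001).

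Nucleic acid sensors rose more uniformly: of the 14 listed, 12 rose and 2 fell among 14 tested, against 12 and 2 after median scaling, with a median log2 fold change of 2.16 (2.51 after scaling). Ifih1, the RNA sensor MDA5, rose from 8.08, 5.49 and 4.902 to 131, 119.7 and 137 FPKM (log2 fold change 4.21). The DNA-binding interferon-inducible proteins Ifi205 and Ifi203 belong to a family with many close copies. Ifi205 rose from 9.201, 5.12 and 4.28 to 445, 295 and 353 FPKM (log2 fold change 5.704). Ifi203 rose from 13.97, 5.92 and 6.03 to 129, 84.8 and 98.8 FPKM (log2 fold change 3.53). Mavs, the mitochondrial adaptor of the RNA sensors, fell from 21.7, 22.9 and 24.2 to 6.61, 6.16 and 5.34 FPKM (log2 fold change -1.77). NOD-like receptors and inflammasome genes were divided, and 9 rose and 10 fell among 22 tested, against 10 and 9 after median scaling, with a median log2 fold change of -0.17 (0.18 after scaling). Nlrp3, the inflammasome sensor, had 13.2, 10.9 and 11.4 FPKM in the control samples and 267, 266 and 274 FPKM in the LPS samples, a log2 fold change of 4.398 (adjusted p = 1.49e-06). Nlrp1b, the sensor of anthrax lethal toxin, fell from 17.7, 11.8 and 10.8 to 5.17, 1.47 and 1.67 FPKM (log2 fold change -2.04). Nlrx1, a mitochondrial member, fell from 3.46, 5.35 and 4.59 to 0.977, 0.811 and 0.636 FPKM (log2 fold change -1.58). Nlrp10, a member without leucine-rich repeats, fell from 1.24, 1.804 and 1.54 to 0.32001, 0.171 and 0.163 FPKM (log2 fold change -1.05).

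Most measured cytokine and chemokine genes rose. For the IL-1 family of 18 symbols, of which 9 were under 1 FPKM in all samples, 5 rose and 0 fell among 7 tested, against 6 and 0 after median scaling, with a median log2 fold change of 2.23 (2.58 after scaling). Il1a, the cell-associated IL-1, rose from 0.457, 0.6597 and 0.273 to 16.3, 105 and 102 FPKM (log2 fold change 5.303). The receptor antagonist Il1rn rose from 9.45, 11.4 and 12.4 to 119.6, 336 and 319 FPKM (log2 fold change 4.29). In both, as in Il1b, LPS replicate 1 was the lowest LPS sample. Of the IL-6 and IL-12 families, 6 rose and 5 fell among 12 tested, against 6 and 3 after median scaling, with a median log2 fold change of 0.68 (1.03 after scaling). Il27, a cytokine subunit that acts on T cells, rose from 0.498, 2.48 and 1.105 to 231, 561 and 530.1 FPKM (log2 fold change 7.53). Il6 itself had 0, 0.352 and 0.05705 FPKM in the control samples and 48.8, 71.9 and 78.1 FPKM in the LPS samples, a log2 fold change of 5.87 (adjusted p = 5.05e-06). Il12b, the subunit shared by IL-12 and IL-23, rose from 0, 0.0356 and 0.0866 to 9.77, 18.05 and 21.3 FPKM (log2 fold change 3.996). The receptor chain Il6ra fell from 27.6, 24.4 and 22.8 to 3.41, 2.38 and 2.29 FPKM (log2 fold change -2.82).

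Tnf, the main early inflammatory cytokine, had 11.8, 19.01 and 16.5 FPKM in the control samples and 1313, 1416 and 1357 FPKM in the LPS samples. Its log2 fold change was 6.37 (SE 0.16, adjusted p = 2.87e-06), and its LPS samples were within a narrow range. Of the TNF superfamily as a whole, 13 rose and 10 fell among 23 tested, against 13 and 5 after median scaling, with a median log2 fold change of 0.54 (0.89 after scaling). Cd40, the receptor for T cell help, rose from 5.904, 8.41 and 6.71 to 410.2, 707 and 699 FPKM (log2 fold change 6.21). Tnfsf9, the ligand of the costimulator 4-1BB, rose from 0.648, 1.58 and 1.72 to 87.6, 181 and 168 FPKM (log2 fold change 5.95). Tnfrsf21, a death-domain receptor, fell from 10.5, 13.1 and 13.3 to 1.51, 1.88 and 1.82 FPKM (log2 fold change -2.28). Of the CXC chemokines, 10 rose and 0 fell among 12 tested, against 10 and 0 after median scaling, with a median log2 fold change of 2.16 (2.51 after scaling). Of the CC chemokines, 10 rose and 0 fell among 13 tested, against 10 and 0 after median scaling, with a median log2 fold change of 3.16 (3.51 after scaling). Ccl5, a chemokine for T cells and monocytes, had 66.6, 31.3 and 19.1 FPKM in the control samples and 3677, 4848 and 4987 FPKM in the LPS samples, a log2 fold change of 6.98. Ccl4 rose from 26.2, 51.3 and 37.8 to 1734, 4116 and 3792 FPKM (log2 fold change 6.3005). Ccl3 rose from 48.9, 51.9 and 49.2 to 1424, 2519.8 and 2476 FPKM (log2 fold change 5.34). Both attract monocytes and T cells, and LPS replicate 1 was the lowest LPS sample in each.

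Growth factor and interferon genes were mixed. Of the colony-stimulating factors and receptors, 5 rose and 5 fell among 11 tested, against 5 and 2 after median scaling, with a median log2 fold change of -0.082 (0.27 after scaling). Csf1, which encodes M-CSF, rose from 0.566, 0.564 and 0.311 to 11.1, 9.06 and 8.15 FPKM (log2 fold change 2.81). Csf3, the granulocyte factor G-CSF, was listed at 0 in all control samples and at 0.486, 2.23 and 2.60 FPKM in the LPS samples. Il34, a second ligand of the M-CSF receptor, was likewise listed at 0 in all control samples and at 0.638, 2.17 and 1.66 FPKM in the LPS samples. Flt3l, a dendritic cell growth factor, fell from 4.87, 5.57 and 4.14 to 2.68, 1.39 and 1.47 FPKM (log2 fold change -1.06). The M-CSF receptor Csf1r had 932, 888 and 906 FPKM in the control samples and 747, 576 and 584 FPKM in the LPS samples, a log2 fold change of -0.53 that was lost after median scaling (adjusted p = 0.191). Of the type I interferons and interferon receptor genes, a list that includes Ifngr1 of the interferon-γ receptor, 6 of 11 were under 1 FPKM. In this list 4 rose and 1, Ifngr1, fell among 5 tested, against 4 and 0 after median scaling, with a median log2 fold change of 0.47 (0.82 after scaling). Ifnb1, interferon-β, was low at this time, with 0.147, 0.1097 and 0 FPKM in the control samples and 3.13, 2.14 and 2.05 FPKM in the LPS samples, and still rose (log2 fold change 1.65, adjusted p = 0.000111). The type I receptor chains rose modestly: Ifnar1 rose from 27.4, 28.9 and 29.2 to 43.3, 56.3 and 54.2 FPKM (log2 fold change 0.82). Ifnar2 rose from 121, 106 and 103 to 143, 158 and 157 FPKM (log2 fold change 0.47). Ifngr1, a chain of the interferon-γ receptor, fell from 134, 107 and 116 to 103, 67.5 and 68.1 FPKM (log2 fold change -0.597) but not after median scaling (adjusted p = 0.272). The Ifngr1 log2 fold change lost the threshold without LPS replicate 2 or 3, or without control replicate 1 or 3 (adjusted p from 0.0596 to 0.0812).

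Of the IL-10 and TGF-beta axis, 6 rose and 5 fell among 14 tested, against 8 and 5 after median scaling, with a median log2 fold change of 0.14 (0.49 after scaling). Il10, the anti-inflammatory cytokine, had 5.203, 7.901 and 7.499 FPKM in the control samples and 8.11, 59.4 and 49.3 FPKM in the LPS samples, so that LPS replicate 1 was the closest to the controls. The Il10 log2 fold change was 1.96 (adjusted p = 0.0411) and 2.83 without that sample (adjusted p = 0.000106). The Il10 log2 fold change lost the threshold without LPS replicate 2 or 3, or without control replicate 1, 2 or 3 (adjusted p from 0.0824 to 0.127). Il19, of the IL-10 family, rose from 0, 0.0759 and 0 to 1.08, 9.29 and 9.63 FPKM (log2 fold change 2.58), also with LPS replicate 1 the lowest. The TGF-β corepressors moved apart: Skil rose from 6.801, 4.95 and 5.82 to 23.2, 15.5 and 16.9 FPKM (log2 fold change 1.501). Ski fell from 26.3, 29.8 and 28.8 to 4.93, 4.26 and 4.395 FPKM (log2 fold change -2.41). Of growth factors and matrix genes, 3 rose and 8 fell among 14 tested, against 3 and 4 after median scaling, with a median log2 fold change of -0.49 (-0.14 after scaling). Lower shares of 57.1% and 28.6% after scaling were not above the 57.6% and 35.8% of all rows. Pdgfb, a platelet-derived growth factor, fell from 26.95, 43.3 and 36.7 to 3.56, 7.501 and 6.17 FPKM (log2 fold change -2.46). Vegfa, which stimulates vessel growth, fell from 16.2, 6.295 and 6.599 to 3.399, 1.43 and 1.56 FPKM (log2 fold change -1.71). Hgf, hepatocyte growth factor, fell from 8.24, 4.03 and 4.79 to 1.93, 0.85003 and 1.02 FPKM (log2 fold change -1.54). Edn1, the vasoconstrictor endothelin, rose from 0, 0.407 and 0.0943 to 18.6, 108 and 99.7 FPKM (log2 fold change 5.697).

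NF-kB genes rose as a group. Of the 16 subunits and IkB proteins, 13 rose and 2 fell among 16 tested, against 14 and 1 after median scaling, with a median log2 fold change of 2.21 (2.56 after scaling). The higher share was 81.2%, against 16.7% of all tested rows. Nfkbia, the inhibitor IkBα that NF-kB itself induces, had 36.6, 48.5 and 47.1 FPKM in the control samples and 660.1, 1063 and 1044 FPKM in the LPS samples. Its log2 fold change was 4.33 (SE 0.21, adjusted p = 1.41e-05). Nfkbiz, a nuclear IkB that steers secondary genes such as Il6, rose from 8.63, 6.08 and 7.04 to 215, 243 and 248.9 FPKM (log2 fold change 4.85). Nfkbie, another cytoplasmic inhibitor, rose from 12.2, 15.02 and 16.01 to 128, 164 and 159 FPKM (log2 fold change 3.29). Map3k14, the kinase NIK of the non-canonical pathway, fell from 10.6, 10.6 and 10.6 to 2.35, 1.14 and 0.995 FPKM (log2 fold change -2.25). Of the STAT factors and Janus kinases, 6 rose and 1 fell among 10 tested, against 9 and 1 after median scaling, with a median log2 fold change of 1.15 (1.497 after scaling). Jak2 rose from 9.602, 8.76 and 8.48 to 136, 172 and 185 FPKM (log2 fold change 4.05). Stat5a, which follows growth factor receptors, rose from 8.401, 11.2 and 9.95 to 42.2, 97.4 and 88.4 FPKM (log2 fold change 2.75). Stat2, of the interferon complex, rose from 15.5, 12.2 and 10.3 to 75.2, 87.6 and 88.1 FPKM (log2 fold change 2.64). Stat6, which carries IL-4 signals, fell from 65.3, 76.1 and 77.2 to 40.4, 39.8 and 36.8 FPKM (log2 fold change -0.88).

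The other transcription factor families were divided at 3 h. Of the AP-1 and ATF factors, 8 rose and 8 fell among 22 tested, against 10 and 5 after median scaling, with a median log2 fold change of -0.07 (0.28 after scaling). Batf rose from 3.56, 3.995 and 5.898 to 48.2, 104 and 94.9 FPKM (log2 fold change 3.87). Jdp2 rose from 3.803, 4.77 and 4.54 to 55.4, 99.8 and 80.4 FPKM (log2 fold change 3.85). Batf2 rose from 3.92, 4.05 and 3.33 to 40.6, 48.7 and 49.1 FPKM (log2 fold change 3.304). All 3 are small basic leucine zipper proteins, a class that pairs with JUN. Fos, an immediate early gene, fell from 78.6, 97.4 and 99.2 to 10.4, 5.89 and 4.85 FPKM (log2 fold change -3.58). Of the EGR and KLF zinc fingers, 4 rose and 8 fell among 15 tested, against 5 and 4 after median scaling, with a median log2 fold change of -0.296 (0.053 after scaling). Egr2 fell from 24.6, 22.5 and 26.2 to 8.75, 2.64 and 2.57 FPKM (log2 fold change -2.34). Klf10 fell from 12.5, 11.9 and 12.95 to 2.89, 2.21 and 2.13 FPKM (log2 fold change -1.99). Klf11 fell from 2.57, 2.26 and 2.397 to 0.192, 0.304 and 0.292 FPKM (log2 fold change -1.43). Klf7 rose from 1.39, 1.21 and 1.42 to 19.1, 23.4 and 21.5 FPKM (log2 fold change 3.25). Of the interferon regulatory factors and their partners, 3 rose and 6 fell among 10 tested, against 4 and 4 after median scaling, with a median log2 fold change of -0.38 (-0.027 after scaling). Irf1 rose from 43.8, 45.3 and 30.02 to 541, 456 and 425 FPKM (log2 fold change 3.56). Irf7, the amplifier of type I interferon, rose from 45.4, 22.5 and 14.2 to 167, 177 and 175 FPKM (log2 fold change 2.77). Irf8, a factor of the monocyte lineage, had 86.4, 76.6 and 75.7 FPKM in the control samples and 33.4, 31.3 and 31.2 FPKM in the LPS samples, a log2 fold change of -1.29 (adjusted p = 2.93e-05). The corepressor Irf2bp2 fell from 33.4, 31.9 and 30.95 to 2.36, 0.804 and 0.591 FPKM (log2 fold change -3.96). Its relative Irf2bp1 fell from 9.06, 11.03 and 10.2 to 3.39, 4.09 and 3.72 FPKM (log2 fold change -1.23).

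Of the C/EBP factors, 2 rose and 4 fell among 7 tested, against 2 and 3 after median scaling, with a median log2 fold change of -0.43 (-0.084 after scaling). Cebpd, an acute-phase factor, rose and had 7.16, 6.12 and 5.83 FPKM in the control samples and 87.8, 133 and 135 FPKM in the LPS samples. Cebpa, which specifies myeloid cells, fell from 71.4, 73.2 and 66.2 to 18.3, 7.33 and 8.09 FPKM (log2 fold change -2.65). Ddit3, the stress factor CHOP, fell from 37.6, 25.5 and 26.6 to 14.6, 6.49 and 6.61 FPKM (log2 fold change -1.66). Cebpg fell from 15.9, 14.1 and 14.2 to 7.897, 6.18 and 6.35 FPKM (log2 fold change -1.01). Of the macrophage lineage factors, 11 rose and 17 fell among 29 tested, against 11 and 13 after median scaling, with a median log2 fold change of -0.54 (-0.19 after scaling). The lysosomal regulator Tfeb fell from 29.8, 34.8 and 30.99 to 5.602, 1.87 and 1.86 FPKM (log2 fold change -3.12). The homeobox factor Hhex fell from 17.6, 22.5 and 20.99 to 4.42, 1.99 and 2.26 FPKM (log2 fold change -2.5001). Tfec, a relative of Tfeb, rose from 21.4, 18.2 and 20.9 to 147, 173 and 183 FPKM (log2 fold change 2.99). Of the nuclear receptors and their cofactors, 3 rose and 15 fell among 21 tested, against 5 and 14 after median scaling, with a median log2 fold change of -1.29 (-0.94 after scaling). By 2-fold or more 12 fell, and 7 after scaling, against 19.4% and 9.30% of all rows. Rxra, the shared partner of PPAR and LXR, had 22.5, 26.6 and 25.6 FPKM in the control samples and 4.36, 3.26 and 2.88 FPKM in the LPS samples, a log2 fold change of -2.53. Pparg, a lipid-sensing receptor, fell from 42.6, 43.5 and 41.5 to 12.7, 10.2 and 8.85 FPKM (log2 fold change -1.93). Nr4a3, an orphan receptor, rose from 0.148, 0 and 0.09003 to 0.863, 1.33 and 1.07 FPKM (log2 fold change 0.95).

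Inhibitors and regulators of the pathway changed in both directions. Of the ubiquitin regulators and TRAFs, 17 rose and 9 fell among 34 tested, against 21 and 4 after median scaling, with a median log2 fold change of 0.34 (0.69 after scaling). Tnfaip3, the ubiquitin-editing enzyme A20 that limits NF-kB, had 11.4, 10.2 and 11.7 FPKM in the control samples and 231, 445 and 426 FPKM in the LPS samples, a log2 fold change of 4.87 (adjusted p = 1.7e-05). Traf1, a signalling adaptor of TNF receptors, rose from 3.92, 4.401 and 3.29 to 103, 160.1 and 149.7 FPKM (log2 fold change 4.81). Ripk2, the kinase of the NOD receptors, rose from 5.48, 5.61 and 5.72 to 109, 97.97 and 106 FPKM (log2 fold change 3.997) and its samples were tightly grouped. Tab1, a subunit that activates the kinase TAK1, fell from 7.43, 8.67 and 9.51 to 1.54, 1.54 and 1.62 FPKM (log2 fold change -1.89). Of the SOCS family, 4 rose and 3 fell among 11 tested, against 7 and 2 after median scaling, with a median log2 fold change of -0.01 (0.34 after scaling). Socs1, which inhibits interferon signalling, rose from 1.23, 0.4901 and 0.769 to 35.7, 68.5 and 71.2 FPKM (log2 fold change 4.98). Cish rose from 0.637, 0.859 and 0.631 to 5.803, 20.4 and 18.7 FPKM (log2 fold change 3.06). Socs6 fell from 18.8, 16.6 and 16.3 to 5.6003, 5.12 and 5.198 FPKM (log2 fold change -1.53).

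Of the dual-specificity phosphatases, which switch off MAP kinases, 3 rose and 9 fell among 14 tested, against 5 and 6 after median scaling, with a median log2 fold change of -0.59 (-0.24 after scaling). Dusp2 rose from 1.82, 1.98 and 2.32 to 93.99, 197 and 184 FPKM (log2 fold change 5.64). Dusp6 fell from 9.65, 11.1 and 12.1 to 1.43, 0.566 and 0.784 FPKM (log2 fold change -2.65). Dusp7 fell from 16.9, 21.8 and 20.9 to 3.24, 3.68 and 3.63 FPKM (log2 fold change -2.201). Dusp3 fell from 52.9, 59.5 and 62.1 to 14.04, 14.4 and 14.99 FPKM (log2 fold change -1.93). RNA-decay factors were split within one family. Of that list, 7 rose and 8 fell among 23 tested, against 11 and 8 after median scaling, with a median log2 fold change of -0.015 (0.33 after scaling). Zfp36, tristetraprolin, which destabilises Tnf mRNA, had 93.6, 114 and 112 FPKM in the control samples and 349, 658 and 622 FPKM in the LPS samples, a log2 fold change of 2.29 (adjusted p = 0.00026). Its relatives moved the other way: Zfp36l2 fell from 94.3, 92.96 and 83.2 to 8.08, 3.68 and 3.77 FPKM (log2 fold change -3.95). Zfp36l1 fell from 55.8, 47.9 and 51.4 to 5.07, 2.501 and 2.28 FPKM (log2 fold change -3.68). The same held for the regnase-like genes, where Zc3h12c rose from 4.32, 3.34 and 3.89 to 52.5, 34.1 and 36.5 FPKM (log2 fold change 3.09). Zc3h12d fell from 13.7, 16.5 and 16.6 to 2.61, 3.99 and 3.21 FPKM (log2 fold change -1.97).

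Interferon-responsive genes rose almost without exception. Of the 59 interferon-stimulated genes, 55 rose and 0 fell among 58 tested, against 56 and 0 after median scaling, with a median log2 fold change of 2.704 (3.05 after scaling), and 51 rose by 2-fold or more. Against the 16.7% of all tested rows that rose, this is 94.8%. Rsad2, the antiviral enzyme viperin, had 9.33, 5.35 and 3.303 FPKM in the control samples and 984, 844 and 916 FPKM in the LPS samples, a log2 fold change of 7.12 (adjusted p = 8.31e-06). Ifit1, which binds foreign RNA ends, had 6.42, 3.89 and 2.68 FPKM in the control samples and 668, 591 and 656 FPKM in the LPS samples, a log2 fold change of 6.97. Oasl1, an inhibitor of Irf7 translation, rose from 1.86, 1.296 and 0.788 to 260.0, 259 and 229 FPKM (log2 fold change 6.78). In Rsad2 and Ifit1 the highest control value was in replicate 1. Of the guanylate-binding and immunity-related GTPases, which attack vacuoles of intracellular microbes, 16 rose and 0 fell among 17 tested, against 16 and 0 after median scaling, with a median log2 fold change of 3.497 (3.85 after scaling). Gbp2 rose from 11.9, 12.7 and 6.34 to 358, 311 and 345 FPKM (log2 fold change 4.95). Tgtp1 rose from 1.28, 1.03 and 0.474 to 49.8, 29.2 and 34.2 FPKM (log2 fold change 4.32), but 91.4% of the 50-base words of its transcript occur in another gene, so its reads may be shared.

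Genes of MHC class I presentation rose more often than they fell, which class II genes did only after scaling. Of the class I list, 14 rose and 1 fell among 24 tested, against 19 and 0 after median scaling, with a median log2 fold change of 0.57 (0.92 after scaling). H2-M2, a non-classical class I gene, rose from 2.51, 1.97 and 1.69 to 59.8, 37.7 and 35.9 FPKM (log2 fold change 3.86). Tap1, the peptide transporter, rose from 23.2, 22.98 and 18.4 to 108, 139 and 139 FPKM (log2 fold change 2.52). Psme2, a proteasome activator, rose from 33.5, 44.5 and 40.4 to 133, 150.3 and 154 FPKM (log2 fold change 1.87), with 59.3% of its words shared with another gene. Pdia3, an endoplasmic reticulum chaperone, fell from 223, 245 and 245 to 188, 169.6 and 186 FPKM (log2 fold change -0.39) but not after median scaling (adjusted p = 0.649). For class II, 2 rose and 6 fell among 14 tested, against 8 and 4 after median scaling, with a median log2 fold change of 0.027 (0.38 after scaling), so that more fell than rose as deposited and more rose than fell after scaling. Ciita, the master activator of class II genes, had 5.52, 8.12 and 6.54 FPKM in the control samples and 2.23, 2.32 and 2.09 FPKM in the LPS samples, a log2 fold change of -1.25 (adjusted p = 0.000239). The promoter-binding subunits Rfxank and Rfxap also fell. Rfxank fell from 3.53, 3.21 and 3.13 to 1.43, 1.22 and 0.629 FPKM (log2 fold change -1.05). Rfxap fell from 8.66, 7.41 and 6.86 to 4.11, 2.88 and 2.699 FPKM (log2 fold change -1.04). March1, a ligase that removes class II from the surface, rose from 24.5, 13.4 and 14.2 to 47.7, 26.5 and 31.5 FPKM (log2 fold change 0.99), with LPS replicate 1 the highest. The March1 log2 fold change lost the threshold without control replicate 2 or 3 (adjusted p from 0.0689 to 0.0698).

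Costimulatory and checkpoint ligands rose: of 22 listed, 21 were tested, of which 15 rose and 3 fell (17 and 2 after median scaling), and the median log2 fold change was 1.76 (2.11 after scaling). Icam1, an adhesion partner of T cells, had 30.9, 37.9 and 35.8 FPKM in the control samples and 828, 1167 and 1114 FPKM in the LPS samples, a log2 fold change of 4.84. The gene listed as 4632428N05Rik, the inhibitory checkpoint VISTA, fell from 158, 168 and 171 to 42.4, 42.3 and 39.03 FPKM (log2 fold change -1.98).

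Surface receptors changed in both directions. Of the scavenger and efferocytosis receptors, 6 rose and 19 fell among 27 tested, against 7 and 17 after median scaling, with a median log2 fold change of -0.69 (-0.34 after scaling). Mertk, which takes up dying cells, had 38.3, 31.5 and 25.9 FPKM in the control samples and 11.3, 9.24 and 9.19 FPKM in the LPS samples, a log2 fold change of -1.58 (adjusted p = 0.000174). Cd300a, an inhibitory lipid receptor, fell from 75.7, 91.97 and 89.7 to 24.4, 19.5 and 18.9 FPKM (log2 fold change -1.99). Olr1, the scavenger receptor LOX-1, rose from 0.0247, 0.036999 and 0.0899 to 5.27, 6.75 and 6.405 FPKM (log2 fold change 2.76). Of the chemokine and chemoattractant receptors, 4 rose and 9 fell among 18 tested, against 7 and 6 after median scaling, with a median log2 fold change of -0.32 (0.028 after scaling). S1pr1, the egress receptor for sphingosine-1-phosphate, fell from 26.9, 24.1 and 25.7 to 1.198, 0.982 and 0.781 FPKM (log2 fold change -3.75). Gpr183, an oxysterol receptor that guides cells, fell from 10.8, 11.5 and 11.4 to 0.294, 0.349 and 0.445 FPKM (log2 fold change -3.17). Fpr2, a formyl peptide receptor, rose from 2.05, 2.05 and 2.08 to 168, 153 and 170.2 FPKM (log2 fold change 5.75), with 37.2% of its words shared with another gene.

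Of the purinergic and adenosine genes, 3 rose and 10 fell among 15 tested, against 4 and 7 after median scaling, with a median log2 fold change of -0.56 (-0.21 after scaling). P2rx7, the ATP-gated channel that triggers the inflammasome, fell from 25.03, 22.6 and 22.8 to 5.51, 3.55 and 3.895 FPKM (log2 fold change -2.22). P2ry6, a UDP receptor, fell from 110.4, 132 and 129 to 23.9, 35.5 and 31.05 FPKM (log2 fold change -2.02). Entpd1, the ATP-degrading enzyme CD39, fell from 95.5, 78.98 and 84.1 to 29.9, 28.1 and 26.5 FPKM (log2 fold change -1.58). Adora2a, an inhibitory adenosine receptor, rose from 0.143, 0.321 and 0.271 to 26.2, 51.2 and 44.4 FPKM (log2 fold change 5.01). Of the C-type lectins, 6 rose and 10 fell among 18 tested, against 8 and 2 after median scaling, with a median log2 fold change of -0.42 (-0.075 after scaling). Clec4e, the mycobacterial glycolipid receptor Mincle, had 5.28, 6.53 and 6.63 FPKM in the control samples and 811, 744 and 819 FPKM in the LPS samples, a log2 fold change of 6.797 (adjusted p = 8.58e-07). Clec7a, Clec2i and Clec10a fell, none of them after median scaling. Clec7a, the β-glucan receptor Dectin-1, fell from 167, 86.5 and 87.3 to 71.4, 31.7 and 34.2 FPKM (log2 fold change -1.32) (adjusted p = 0.0672 after scaling). Clec2i fell from 2.49, 1.13 and 0.786 to 0.314, 0.124 and 0.302 FPKM (log2 fold change -0.93) (0.0963), and Clec10a fell from 16.6, 27.8 and 22.1 to 9.27, 12.9 and 12.5 FPKM (log2 fold change -0.87) (0.0648). The Clec7a log2 fold change lost the threshold without LPS replicate 2 or 3, or without control replicate 1 (adjusted p from 0.0532 to 0.0667).

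Of the leukocyte integrins, 7 rose and 5 fell among 16 tested, against 8 and 5 after median scaling, with a median log2 fold change of -0.042 (0.31 after scaling). Itgb8, a subunit that activates TGF-β, rose from 0.0575, 0.0861 and 0.0872 to 8.105, 9.84 and 10.5 FPKM (log2 fold change 3.28). Itgal, the LFA-1 subunit, rose from 6.09, 6.92 and 7.42 to 47.6, 39.7 and 44.4 FPKM (log2 fold change 2.52). Itgav rose from 12.4, 13.4 and 13.8 to 52.5, 71.3 and 69.4 FPKM (log2 fold change 2.19). The laminin receptor subunit Itga6 fell from 28.9, 26.1 and 28.3 to 8.03, 7.54 and 7.06 FPKM (log2 fold change -1.75). Of the Fc gamma receptors, 4 rose and 2 fell among 6 tested, against 4 and 1 after median scaling, with a median log2 fold change of 0.31 (0.66 after scaling). The inhibitory receptor Fcgr2b rose from 118, 109.8 and 103 to 296, 481 and 507 FPKM (log2 fold change 1.91). Fcgr1 rose from 75.5, 67.4 and 53.9 to 88.01, 88.2 and 90.3 FPKM (log2 fold change 0.45). The Fcgr1 log2 fold change lost the threshold without LPS replicate 3 (adjusted p = 0.0535). Fcgr4 rose from 49.97, 52.6 and 36.6 to 72.1, 59.8 and 62.9 FPKM (log2 fold change 0.49). The Fcgr4 log2 fold change lost the threshold without LPS replicate 1 or 3 (adjusted p from 0.058 to 0.0676). Fcgrt, which recycles antibody, fell from 81.04, 98.8 and 95.8 to 44.2, 51.7 and 47.3 FPKM (log2 fold change -0.93). Of the complement genes, 4 rose and 5 fell among 15 tested, against 6 and 0 after median scaling, with a median log2 fold change of -0.26 (0.093 after scaling). Cfb, factor B, rose from 1.96, 1.23 and 0.983 to 29.2, 34.6 and 37.1 FPKM (log2 fold change 3.87), with 81.4% of its words shared with another gene. C1qc fell from 1421, 1524 and 1407 to 1206, 1071 and 1028 FPKM (log2 fold change -0.3995). C3ar1 fell from 287, 275 and 275 to 248.7, 170.3 and 168 FPKM (log2 fold change -0.53). Cd59a fell from 2.69, 2.98 and 3.54 to 1.09, 1.64 and 1.92 FPKM (log2 fold change -0.68), but none of these after median scaling (adjusted p = 0.581, 0.317 and 0.109). The C3ar1 log2 fold change lost the threshold without LPS replicate 2 or 3, or without control replicate 1, 2 or 3 (adjusted p from 0.0531 to 0.0687).

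Metabolic genes changed in both directions. For Irg1 and the TCA cycle, 2 rose and 20 fell among 27 tested, against 4 and 10 after median scaling, with a median log2 fold change of -0.44 (-0.095 after scaling). The lower share was 74.1% as deposited, against 57.6% of all rows. After scaling it was 37.0%, close to the 35.8% of all rows. Idh1, an isocitrate dehydrogenase of the cytosol, fell from 147, 133 and 133 to 54.4, 47.1 and 47.3 FPKM (log2 fold change -1.45). Sdhb, a subunit of succinate dehydrogenase, fell from 143, 147 and 142 to 78.2, 78.7 and 78.5 FPKM (log2 fold change -0.87). Fumarase Fh1 fell from 33.3, 36.3 and 37.8 to 19.1, 19.2 and 20.4 FPKM (log2 fold change -0.84). For arginine, nitric oxide and polyamines, 7 rose and 6 fell among 17 tested, against 9 and 4 after median scaling, with a median log2 fold change of -0.035 (0.31 after scaling). Nos2, the inducible nitric oxide synthase, had 0, 0.296 and 0.0933 FPKM in the control samples and 16.3, 87.8 and 79.7 FPKM in the LPS samples, a log2 fold change of 5.47 (adjusted p = 0.000306), with LPS replicate 1 well below the others. Slc7a2, the arginine importer, rose from 0.1997, 0.7898 and 0.411 to 3.86, 29.1 and 22.4 FPKM (log2 fold change 3.38). Gch1, which makes the synthase's cofactor, rose from 6.78, 6.76 and 7.07 to 49.5, 50.5 and 55.4 FPKM (log2 fold change 2.74). Ddah2, which degrades an inhibitor of the synthase, fell from 4.01, 5.86 and 6.16 to 1.37, 1.81 and 2.23 FPKM (log2 fold change -1.17).

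Of the glycolysis genes, 7 rose and 10 fell among 26 tested, against 9 and 5 after median scaling, with a median log2 fold change of -0.28 (0.074 after scaling). By 2-fold or more 7 rose and 3 fell, and 7 and 2 after scaling. The hexose transporter Slc2a6 rose from 8.52, 8.99 and 7.91 to 236, 346 and 317 FPKM (log2 fold change 4.97). The bifunctional phosphofructokinases Pfkfb2 and Pfkfb4 fell, Pfkfb2 from 4.62, 4.09 and 4.19 to 0.839, 0.504 and 0.632 FPKM (log2 fold change -1.68) and Pfkfb4 from 21.6, 20.3 and 20.3 to 9.57, 4.99 and 4.77 FPKM (log2 fold change -1.61). Their relative Pfkfb3 rose (log2 fold change 3.54). The muscle-type phosphofructokinase Pfkm fell from 4.03, 4.14 and 4.75 to 1.54, 1.39 and 1.201 FPKM (log2 fold change -1.16). The phosphofructokinases Pfkl and Pfkp rose (log2 fold change 1.10 and 1.02). Gapdh, often used as a reference gene, had 40.8, 42.2 and 41.1 FPKM in the control samples and 32.2, 37.2 and 35.6 FPKM in the LPS samples, a log2 fold change of -0.24 (adjusted p = 0.0259) that turned to 0.11 after median scaling. The Gapdh log2 fold change lost the threshold without LPS replicate 3, or without control replicate 2 or 3 (adjusted p from 0.0597 to 0.08). Actb, the other common reference, had 1429, 1946 and 1907 FPKM in the control samples and 2470.0, 3058 and 3093 FPKM in the LPS samples, a log2 fold change of 0.71. For HIF-1 and its regulators, 5 rose and 5 fell among 14 tested, against 6 and 3 after median scaling, with a median log2 fold change of -0.14 (0.21 after scaling). Hif1a, the oxygen-regulated factor, rose from 21.01, 15.97 and 18.6 to 47.9, 59.4 and 66.7 FPKM (log2 fold change 1.59). The other listed genes were divided: Adm rose from 0.0706, 0.0528 and 0.0642 to 2.67, 7.93 and 7.15 FPKM (log2 fold change 2.5996) and Ddit4 rose from 0.729, 0.756 and 0.6297 to 1.25, 3.44 and 2.39 FPKM (log2 fold change 0.93), while Vegfa fell, as given above.

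Lipid mediator genes were counted by pathway. For prostaglandin synthesis, 6 rose and 6 fell among 14 tested, against 7 and 6 after median scaling, with a median log2 fold change of 0.018 (0.37 after scaling). Beside Ptgs2, the terminal synthase Ptges rose from 0.724, 0.868 and 1.004 to 30.97, 126 and 94.7 FPKM (log2 fold change 5.29). The phospholipase Pla2g4a rose from 4.69, 5.98 and 6.28 to 19.9, 20.6 and 21.2 FPKM (log2 fold change 1.705). Hpgd, which degrades prostaglandins, fell from 35.5, 28.7 and 27.4 to 9.94, 7.68 and 7.396 FPKM (log2 fold change -1.76). For the leukotriene pathway, 0 rose and 5 fell among 9 tested, against 0 and 3 after median scaling, with a median log2 fold change of -0.51 (-0.16 after scaling). Its lower shares of 55.6% as deposited and 33.3% after scaling were close to the 57.6% and 35.8% of all rows. Lta4h fell from 37.8, 40.7 and 38.8 to 19.2, 19.7 and 20.2 FPKM (log2 fold change -0.95). Alox5ap, the 5-lipoxygenase activator, fell from 624, 639 and 674 to 395, 384 and 368 FPKM (log2 fold change -0.75). Ephx1 fell from 35.4, 38.4 and 34.1 to 19.02, 23.1 and 23.6 FPKM (log2 fold change -0.69). For LXR and cholesterol efflux, 1 rose and 11 fell among 16 tested, against 2 and 6 after median scaling, with a median log2 fold change of -0.51 (-0.16 after scaling). Here the lower share was 68.75% as deposited and 37.5% after scaling, the latter close to that of all rows. Npc1, the lysosomal cholesterol exporter, fell from 72.97, 76.99 and 79.6 to 27.1, 25.9 and 24.1 FPKM (log2 fold change -1.54). Abcg1 fell from 76.9, 71.2 and 64.9 to 33.4, 23.9 and 24.7 FPKM (log2 fold change -1.36). Nr1h3, the receptor LXRα, rose from 24.96, 36.6 and 31.6 to 47.98, 40.2 and 37.2 FPKM (log2 fold change 0.43), with an adjusted p of 0.0479. The Nr1h3 log2 fold change lost the threshold without LPS replicate 1, 2 or 3, or without control replicate 1 or 3 (adjusted p from 0.0563 to 0.124).

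For cholesterol synthesis and uptake, 5 rose and 9 fell among 26 tested, against 8 and 7 after median scaling, with a median log2 fold change of -0.196 (0.15 after scaling). Dhcr7 fell from 4.49, 6.67 and 6.07 to 1.08, 1.12 and 0.912 FPKM (log2 fold change -1.71). Mvk fell from 4.68, 7.098 and 6.15 to 1.94, 2.17 and 1.96 FPKM (log2 fold change -1.19). Lss fell from 2.26, 3.37 and 3.19 to 0.834, 0.979 and 0.962 FPKM (log2 fold change -1.02). All 3 are enzymes of sterol synthesis. Of the iron and heme genes, 5 rose and 12 fell among 21 tested, against 5 and 9 after median scaling, with a median log2 fold change of -0.47 (-0.12 after scaling). Lower members made up 57.1% and 42.9% after scaling, against 57.6% and 35.8% of all rows. Slc40a1, the iron exporter ferroportin, had 155, 127 and 131 FPKM in the control samples and 21.8, 8.304 and 7.901 FPKM in the LPS samples, a log2 fold change of -3.48 (adjusted p = 0.000221). The ferrireductase Steap3 fell from 21.3, 30.8 and 29.4 to 6.03, 7.75 and 7.74 FPKM (log2 fold change -1.78). Ncoa4, the ferritin autophagy receptor, fell from 101, 85.7 and 91.3 to 42.7, 26.8 and 29.5 FPKM (log2 fold change -1.48). Cp, the ferroxidase ceruloplasmin, rose from 2.75, 1.98 and 1.72 to 63.3, 52.4 and 57.2 FPKM (log2 fold change 4.23). Of the NRF2 and antioxidant genes, 8 rose and 15 fell among 31 tested, against 12 and 7 after median scaling, with a median log2 fold change of -0.45 (-0.104 after scaling). The lower shares, 48.4% and 22.6% after scaling, were under the 57.6% and 35.8% of all rows. The higher shares, 25.8% and 38.7%, were above the 16.7% and 26.7% of all rows. By 2-fold or more, 6 rose and 2 fell. Sod2, the mitochondrial superoxide dismutase, rose from 15.7, 15.5 and 16.02 to 306, 363 and 368 FPKM (log2 fold change 4.37). Osgin1 fell from 27.1, 22.1 and 25.02 to 9.31, 4.101 and 3.93 FPKM (log2 fold change -2.01). Gclc, which makes glutathione's precursor, fell from 27.5, 24.5 and 24.96 to 17.9, 9.85 and 9.95 FPKM (log2 fold change -1.02). Catalase Cat fell from 597, 606 and 629 to 337, 329.6 and 349.8 FPKM (log2 fold change -0.85).

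Effector genes of host defence were examined next. For the NADPH oxidase, 4 rose and 2 fell among 9 tested, against 4 and 1 after median scaling, with a median log2 fold change of 0.26 (0.61 after scaling). Cybb, the catalytic subunit of phagocytes, rose from 206, 174 and 162 to 659, 589 and 619 FPKM (log2 fold change 1.79). Nox1, its epithelial relative, rose from 0.112, 0.125 and 0.119 to 5.305, 7.35 and 8.08 FPKM (log2 fold change 2.81). The GTPase Rac2 rose from 98.1, 104 and 102 to 157, 167 and 157 FPKM (log2 fold change 0.66). Of the metalloproteinases and inhibitors, 8 rose and 7 fell among 17 tested, against 9 and 5 after median scaling, with a median log2 fold change of 0.26 (0.61 after scaling). The collagenase Mmp13 rose from 11.7, 8.66 and 7.67 to 217, 534 and 494 FPKM (log2 fold change 5.24). The membrane-bound Mmp14 rose from 7.12, 8.97 and 8.41 to 174, 276 and 259 FPKM (log2 fold change 4.67). The aggrecanase Adamts4 rose from 0.02396, 0.0538 and 0.0218 to 11.8, 28.3 and 27.1 FPKM (log2 fold change 4.41). Adam19 fell from 16.1, 13.4 and 10.8 to 3.19, 1.21 and 0.771 FPKM (log2 fold change -2.49). Of the BCL-2 family, 6 rose and 8 fell among 18 tested, against 8 and 5 after median scaling, with a median log2 fold change of -0.27 (0.082 after scaling). Bcl2a1d, a survival protein, rose from 7.72, 6.401 and 5.82 to 446, 500.5 and 516 FPKM (log2 fold change 6.002), though 79.5% of its words are shared with its near-identical copies. The death-promoting Bmf fell from 6.62, 5.61 and 6.19 to 0.109, 0.0792 and 0.0918 FPKM (log2 fold change -2.705). Bbc3 fell from 5.63, 5.41 and 4.85 to 2.68, 2.75 and 1.77 FPKM (log2 fold change -0.8997). The survival gene Bcl2l1 also fell, from 31.4, 38.7 and 38.8 to 18.1, 13.2 and 13.1 FPKM (log2 fold change -1.25).

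Of the alternative polarization markers, 5 rose and 4 fell among 12 tested, against 5 and 2 after median scaling, with a median log2 fold change of 0.041 (0.39 after scaling). Ccl22 rose from 0.414, 1.47 and 0.674 to 14.03, 27.6 and 23.95 FPKM (log2 fold change 3.61). The IL-4 receptor chain Il4ra rose from 24.8, 25.2 and 23.4 to 98.96, 234 and 207 FPKM (log2 fold change 2.74). Irf4 fell from 1.15, 1.501 and 1.42 to 0.0719, 0.249 and 0.0649 FPKM (log2 fold change -1.06).

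The growth machinery fell. Of the cell cycle and replication genes, 6 rose and 57 fell among 74 tested, against 10 and 39 after median scaling, with a median log2 fold change of -0.899 (-0.55 after scaling). Lower members made up 77.03% as deposited and 52.7% after scaling, against 57.6% and 35.8% of all rows. Gmnn, which prevents a second round of replication, fell from 13.5, 24.8 and 23.4 to 2.397, 1.69 and 1.73 FPKM (log2 fold change -2.84). Cdc25b, a mitotic phosphatase, fell from 9.14, 10.4 and 10.2 to 1.14, 1.49 and 1.26 FPKM (log2 fold change -2.25), and cyclin D1 (Ccnd1) fell from 17.4, 36.5 and 36.6 to 5.25, 6.69 and 6.11 FPKM (log2 fold change -2.08). Cdkn1a, the cell cycle inhibitor p21, had 83.001, 119 and 115 FPKM in the control samples and 1428, 1767 and 1840.1 FPKM in the LPS samples, a log2 fold change of 3.99 (adjusted p = 8.31e-06). Of the kinesins, 2 rose and 20 fell among 26 tested, against 4 and 16 after median scaling, with a median log2 fold change of -0.87 (-0.52 after scaling). Kifc3 fell from 4.24, 5.21 and 5.25 to 0.591, 0.422 and 0.199 FPKM (log2 fold change -2.08). The midzone motor Kif23 fell from 6.32, 7.09 and 7.08 to 1.4004, 1.099 and 0.505 FPKM (log2 fold change -1.99). Kif21b fell from 5.59, 4.69 and 5.12 to 0.596, 0.712 and 0.613 FPKM (log2 fold change -1.901), while the transport motors Kif1b and Kif5b rose slightly. Kif1b rose from 13.5, 12.8 and 13.8 to 18.4, 15.6 and 16.02 FPKM (log2 fold change 0.299). The Kif1b log2 fold change lost the threshold without control replicate 2 (adjusted p = 0.0644). Kif5b rose from 25.3, 20.6 and 23.6 to 34.4, 25.96 and 28.6 FPKM (log2 fold change 0.34). The Kif5b log2 fold change lost the threshold without LPS replicate 1 or 3, or without control replicate 2 or 3 (adjusted p from 0.0917 to 0.144).

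None of the 63 DNA repair genes rose on the deposited values: 0 rose and 42 fell among 52 tested, against 2 and 34 after median scaling, with a median log2 fold change of -0.93 (-0.58 after scaling). The lower share was 80.8% as deposited and 65.4% after scaling. Chek2, a DNA damage kinase, fell from 6.79, 8.13 and 7.34 to 1.03, 0.718 and 0.682 FPKM (log2 fold change -2.22). Xpc, which recognises bulky lesions, fell from 8.39, 6.48 and 6.92 to 1.104, 0.661 and 0.966 FPKM (log2 fold change -2.11). Of the replication-dependent histone genes, whose mRNAs mostly lack a poly-A tail, 0 rose and 25 fell among 45 tested, against 1 and 11 after median scaling, with a median log2 fold change of -0.54 (-0.19 after scaling). The lower shares of the histone genes, 55.6% as deposited and 24.4% after scaling, were under the 57.6% and 35.8% of all rows. Hist2h2be fell from 4.92, 4.28 and 5.08 to 1.17, 0.977 and 0.914 FPKM (log2 fold change -1.51). Hist3h2a fell from 21.5, 17.1 and 17.9 to 6.49, 5.09 and 5.59 FPKM (log2 fold change -1.56). Hist1h2ba fell from 7.38, 5.83 and 5.14 to 3.13, 1.76 and 0.9595 FPKM (log2 fold change -1.33).

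The lysosome list fell almost throughout. There, 2 rose and 45 fell among 51 tested, against 4 and 35 after median scaling, with a median log2 fold change of -0.76 (-0.41 after scaling), so that 88.2% and then 68.6% of the members were lower. Atp6v0a1, a subunit of the proton pump, had 163, 206 and 219 FPKM in the control samples and 47.9, 44.6 and 45.2 FPKM in the LPS samples, a log2 fold change of -2.06. Neu1, a sialidase, fell from 27.6, 30.9 and 29.1 to 10.2, 8.47 and 8.397 FPKM (log2 fold change -1.596). Ctsc, the protease that activates granule enzymes, rose from 105, 83.01 and 77.1 to 274, 201 and 225 FPKM (log2 fold change 1.39).

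Regulators of G proteins fell more often than they rose, as all tested rows did. Their lower share was 66.7% as deposited and 53.3% after scaling, against 57.6% and 35.8% of all rows. Their higher share was 20.0% under both, against 16.7% and 26.7% of all rows. Of the G protein regulators, 3 rose and 10 fell among 15 tested, against 3 and 8 after median scaling, with a median log2 fold change of -0.86 (-0.51 after scaling). Rgs2 fell from 62.9, 56.5 and 60.5 to 7.44, 2.34 and 2.63 FPKM (log2 fold change -3.703). The arrestin Arrb1 fell from 46.8, 50.1 and 49.3 to 13.5, 6.84 and 6.896 FPKM (log2 fold change -2.37). Rgs18 fell from 19.98, 13.5 and 17.04 to 5.16, 2.48 and 2.67 FPKM (log2 fold change -2.04). Rgs16 rose from 0.77995, 0.759 and 0.828 to 8.996, 5.31 and 5.45 FPKM (log2 fold change 2.05).

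In large housekeeping lists the counts changed with the scaling. Of the 79 cytosolic ribosomal proteins, 1 rose and 58 fell among 76 tested, against 3 and 1 after median scaling, with a median log2 fold change of -0.33 (0.016 after scaling). The 76.3% that fell as deposited became 1.32% after scaling. Rpl22 fell from 71.5, 70.3 and 69.5 to 48.7, 48.5 and 45.1 FPKM (log2 fold change -0.56). Rps27 fell from 8.58, 3.87 and 6.15 to 3.399, 3.05 and 1.43 FPKM (log2 fold change -0.98). Rpl10a fell from 168, 163 and 170.2 to 123, 113 and 113 FPKM (log2 fold change -0.52), but neither after scaling (adjusted p = 0.127 and 0.0549). The Rps27 log2 fold change lost the threshold without LPS replicate 3, or without control replicate 1 or 3 (adjusted p from 0.0765 to 0.0824). Rpl24 rose from 105, 92.01 and 99.8 to 113, 131 and 131 FPKM (log2 fold change 0.33), with 81.7% of its words shared with other genes, as this family has many pseudogenes. The Rpl24 log2 fold change lost the threshold without LPS replicate 2 or 3, or without control replicate 2 (adjusted p from 0.0507 to 0.0544). For oxidative phosphorylation, 0 rose and 46 fell among 74 tested, against 3 and 9 after median scaling, with a median log2 fold change of -0.42 (-0.067 after scaling). Ndufa6 fell from 159, 128 and 135 to 92.3, 70.9 and 75.9 FPKM (log2 fold change -0.81). Ndufs8 fell from 45.5, 63.3 and 60.7 to 27.9, 39.9 and 33.1 FPKM (log2 fold change -0.73), but not after scaling (adjusted p = 0.0922). For the mitochondrial ribosome, 4 rose and 45 fell among 76 tested, against 16 and 23 after median scaling, with a median log2 fold change of -0.43 (-0.084 after scaling). Mrps35 fell from 14.3, 12.8 and 14.2 to 3.55, 3.32 and 3.83 FPKM (log2 fold change -1.69). Mrpl2 fell from 27.5, 29.5 and 29.9 to 10.1, 9.78 and 8.902 FPKM (log2 fold change -1.503). Mrpl41 fell from 5.23, 5.89 and 5.299 to 1.42, 1.45 and 1.73 FPKM (log2 fold change -1.36). Mrpl52 rose from 69.9, 70.7 and 75.7 to 187, 205 and 222 FPKM (log2 fold change 1.49). Mrpl39 rose from 10.4, 9.53 and 10.5 to 23.8, 16.6 and 18.2 FPKM (log2 fold change 0.87). Mrps18b rose from 12.4, 13.9 and 13.6 to 17.4, 21.6 and 19.95 FPKM (log2 fold change 0.52).

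The proteasome stood apart from these. For its core and cap, 10 rose and 6 fell among 34 tested, against 23 and 0 after median scaling, with a median log2 fold change of 0.089 (0.44 after scaling). Psma6 rose from 104, 109 and 115 to 249.3, 332 and 343 FPKM (log2 fold change 1.48). Psmd10 rose from 16.05, 17.8 and 17.2 to 39.3, 35.3 and 37.6 FPKM (log2 fold change 1.09). Psmd11 rose from 17.3, 19.9 and 17.5 to 27.5, 27.9 and 27.01 FPKM (log2 fold change 0.57). The lower members named by rule, Psmd9, Psmb1 and Psma1, had log2 fold changes of -0.35, -0.33 and -0.32, which turned to 0.0026, 0.020 and 0.026 after scaling. The Psmd9 log2 fold change lost the threshold without control replicate 2 or 3 (adjusted p from 0.0795 to 0.0822).

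For the unfolded protein response and heat shock genes, 9 rose and 11 fell among 30 tested, against 15 and 7 after median scaling, with a median log2 fold change of -0.089 (0.26 after scaling). The heat shock gene Hspa1b rose from 1.72, 1.55 and 1.39 to 19.2, 11.8 and 12.97 FPKM (log2 fold change 2.59), with 62.3% of its words shared with its copy. Eif2ak3, the stress kinase PERK, fell from 8.05, 7.06 and 7.67 to 2.402, 1.67 and 1.895 FPKM (log2 fold change -1.53). The chaperone Hsph1 fell from 12.5, 11.6 and 11.9 to 4.797, 4.22 and 3.797 FPKM (log2 fold change -1.31). For the aminoacyl-tRNA synthetases, 4 rose and 8 fell among 20 tested, against 9 and 5 after median scaling, with a median log2 fold change of -0.14 (0.21 after scaling). Sars fell from 22.5, 22.3 and 21.8 to 11.5, 10.1 and 9.62 FPKM (log2 fold change -1.03). Qars fell from 50.5, 49.8 and 47.5 to 26.2, 25.97 and 24.4 FPKM (log2 fold change -0.92). Farsb fell from 27.2, 28.4 and 27.4 to 16.7, 15.8 and 15.5 FPKM (log2 fold change -0.75). Rars rose from 31.96, 32.7 and 31.4 to 47.4, 45.9 and 50.96 FPKM (log2 fold change 0.57). For elongation and splicing control, 6 rose and 10 fell among 28 tested, against 13 and 8 after median scaling, with a median log2 fold change of -0.11 (0.24 after scaling). The splicing kinases Srpk2 and Clk4 fell, Srpk2 from 6.99, 6.35 and 6.701 to 1.63, 1.07 and 1.05 FPKM (log2 fold change -1.78) and Clk4 from 20.4, 14.2 and 15.2 to 7.21, 6.35 and 5.54 FPKM (log2 fold change -1.25). Hexim1, which holds the elongation factor P-TEFb inactive, fell from 16.1, 15.99 and 15.9 to 7.23, 4.76 and 4.199 FPKM (log2 fold change -1.44). Ccnl1, a cyclin of splicing, rose from 35.96, 22.9 and 27.6 to 63.1, 42.8 and 46.8 FPKM (log2 fold change 0.804).

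Large families defined by name gave counts over many members. Of 254 tested genes named Zfp, 16 rose and 187 fell among 254 tested, against 25 and 101 after median scaling, with a median log2 fold change of -0.61 (-0.27 after scaling). The lower share was 73.6% as deposited against 57.6% of all rows, and 39.8% against 35.8% after scaling. Zfp395 fell from 13.2, 15.9 and 15.1 to 0.3202, 0.1902 and 0.173 FPKM (log2 fold change -3.68). Zfp362 fell from 10.6, 12.1 and 9.96 to 2.11, 1.68 and 2.13 FPKM (log2 fold change -1.999). Zfp90 fell from 14.99, 13.8 and 13.5 to 3.55, 2.51 and 2.61 FPKM (log2 fold change -1.97). Zfp800 rose from 5.43, 3.63 and 4.05 to 48.4, 21.9 and 25.8 FPKM (log2 fold change 2.56). Zfp263 rose from 21.7, 20.7 and 19.6 to 119, 91.8 and 91.9 FPKM (log2 fold change 2.23). Of the solute carriers, 30 rose and 107 fell among 175 tested, against 43 and 74 after median scaling, with a median log2 fold change of -0.55 (-0.199 after scaling). Their lower shares were 61.1% as deposited and 42.3% after scaling, against the 57.6% and 35.8% of all rows. The sulfate transporter relative Slc26a11 fell from 24.6, 22.3 and 23.6 to 0.6799, 0.449 and 0.467 FPKM (log2 fold change -4.001). The lysosomal Slc46a3 fell from 56.9, 48.3 and 48.8 to 5.304, 3.77 and 3.27 FPKM (log2 fold change -3.37). The zinc importer Slc39a14 rose from 2.89, 4.27 and 4.08 to 71.8, 108 and 108 FPKM (log2 fold change 4.34). Slco3a1 rose from 0.864, 1.02 and 0.748 to 17.5, 24.5 and 23.8 FPKM (log2 fold change 3.598). Of the TRIM ligases, 14 rose and 18 fell among 35 tested, against 15 and 14 after median scaling, with a median log2 fold change of -0.52 (-0.17 after scaling). Trim13 rose from 5.27, 3.99 and 5.19 to 41.7, 50.9 and 52.2 FPKM (log2 fold change 3.08). Trim30d rose from 7.96, 4.75 and 4.57 to 42.9, 39.05 and 45.9 FPKM (log2 fold change 2.72). Trim30a rose from 26.8, 17.9 and 17.1 to 113, 116 and 134 FPKM (log2 fold change 2.52). Trim65 fell from 5.17, 6.01 and 5.65 to 0.255, 0.325 and 0.327 FPKM (log2 fold change -2.34). Trim47 fell from 21.8, 29.7 and 28.01 to 4.58, 5.76 and 4.64 FPKM (log2 fold change -2.19). Trim16 fell from 4.73, 5.13 and 5.21 to 0.524, 0.328 and 0.441 FPKM (log2 fold change -2.07).

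Of the RAB GTPases, which direct vesicle traffic, 7 rose and 18 fell among 41 tested, against 17 and 9 after median scaling, with a median log2 fold change of -0.24 (0.11 after scaling). Rab20 rose from 12.2, 13.1 and 11.5 to 43.7, 46.002 and 47.3 FPKM (log2 fold change 1.82). Rab12 rose from 27.1, 28.6 and 23.7 to 67.7, 78.96 and 78.4 FPKM (log2 fold change 1.47). Rab32 rose from 27.9, 31.3 and 33.1 to 72.01, 78.9 and 87.01 FPKM (log2 fold change 1.34). Rab19 fell from 7.66, 6.68 and 6.36 to 1.66, 0.685 and 0.416 FPKM (log2 fold change -2.09). Rab40c fell from 14.7, 17.4 and 16.6 to 2.56, 3.69 and 3.11 FPKM (log2 fold change -2.07). Rab3a fell from 1.74, 2.805 and 2.56 to 0.195, 0.128 and 0.1402 FPKM (log2 fold change -1.53). Of the DEAD and DEAH box helicases, 7 rose and 19 fell among 51 tested, against 19 and 10 after median scaling, with a median log2 fold change of -0.19 (0.16 after scaling). The RNA sensors Ddx58 (RIG-I) and Dhx58 (LGP2) rose, Ddx58 from 13.8, 9.37 and 8.77 to 57.1, 55.5 and 61.2 FPKM (log2 fold change 2.36) and Dhx58 from 18.2, 14.1 and 11.4 to 46.5, 44.6 and 46.5 FPKM (log2 fold change 1.61). Ddx60 rose from 2.99, 1.68 and 1.62 to 9.16, 5.01 and 6.42 FPKM (log2 fold change 1.34). Ddx26b fell from 20.4, 16.8 and 17.7 to 3.49, 1.97 and 1.45 FPKM (log2 fold change -2.59). Dhx34 fell from 9.77, 9.92 and 10.2 to 2.55, 2.35 and 2.65 FPKM (log2 fold change -1.64). Dhx32 fell from 11.6, 12.3 and 12.6 to 4.18, 3.67 and 3.503 FPKM (log2 fold change -1.46). Of 762 rows with microRNA or small nucleolar RNA names, 598 were under 1 FPKM in all samples and 7 rose and 7 fell among 164 tested, against 11 and 5 after median scaling, with a median log2 fold change of 0.15 (0.501 after scaling). These rows are far shorter than a sequenced fragment, and FPKM is unstable there. The row of Mir155, a microRNA made from an LPS-induced host transcript, was listed at 0 in all control samples and at 487, 81.6 and 149 FPKM in the LPS samples, and all of its 50-base words belong to another gene's transcript as well. Mir1943 and Snord33 were likewise listed at 0 in all control samples. Mir1943 was at 222, 96.7 and 88.1 FPKM and Snord33 at 115, 89.03 and 54.1 FPKM in the LPS samples. The 2 rows with the largest fitted decreases of all were of this kind. Mir339 was at 54.9, 61.9 and 25.1 FPKM in the control samples and Mir1249 at 49.96, 57.2 and 23.2 FPKM, and both were listed at 0 in all LPS samples. Mirlet7d fell from 39.95, 47.2 and 76.5 to 0, 0 and 22.03 FPKM (log2 fold change -4.23). The Mirlet7d log2 fold change lost the threshold without LPS replicate 1 or 2, or without control replicate 3 (adjusted p from 0.0548 to 0.0607).

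**Figure D4:**
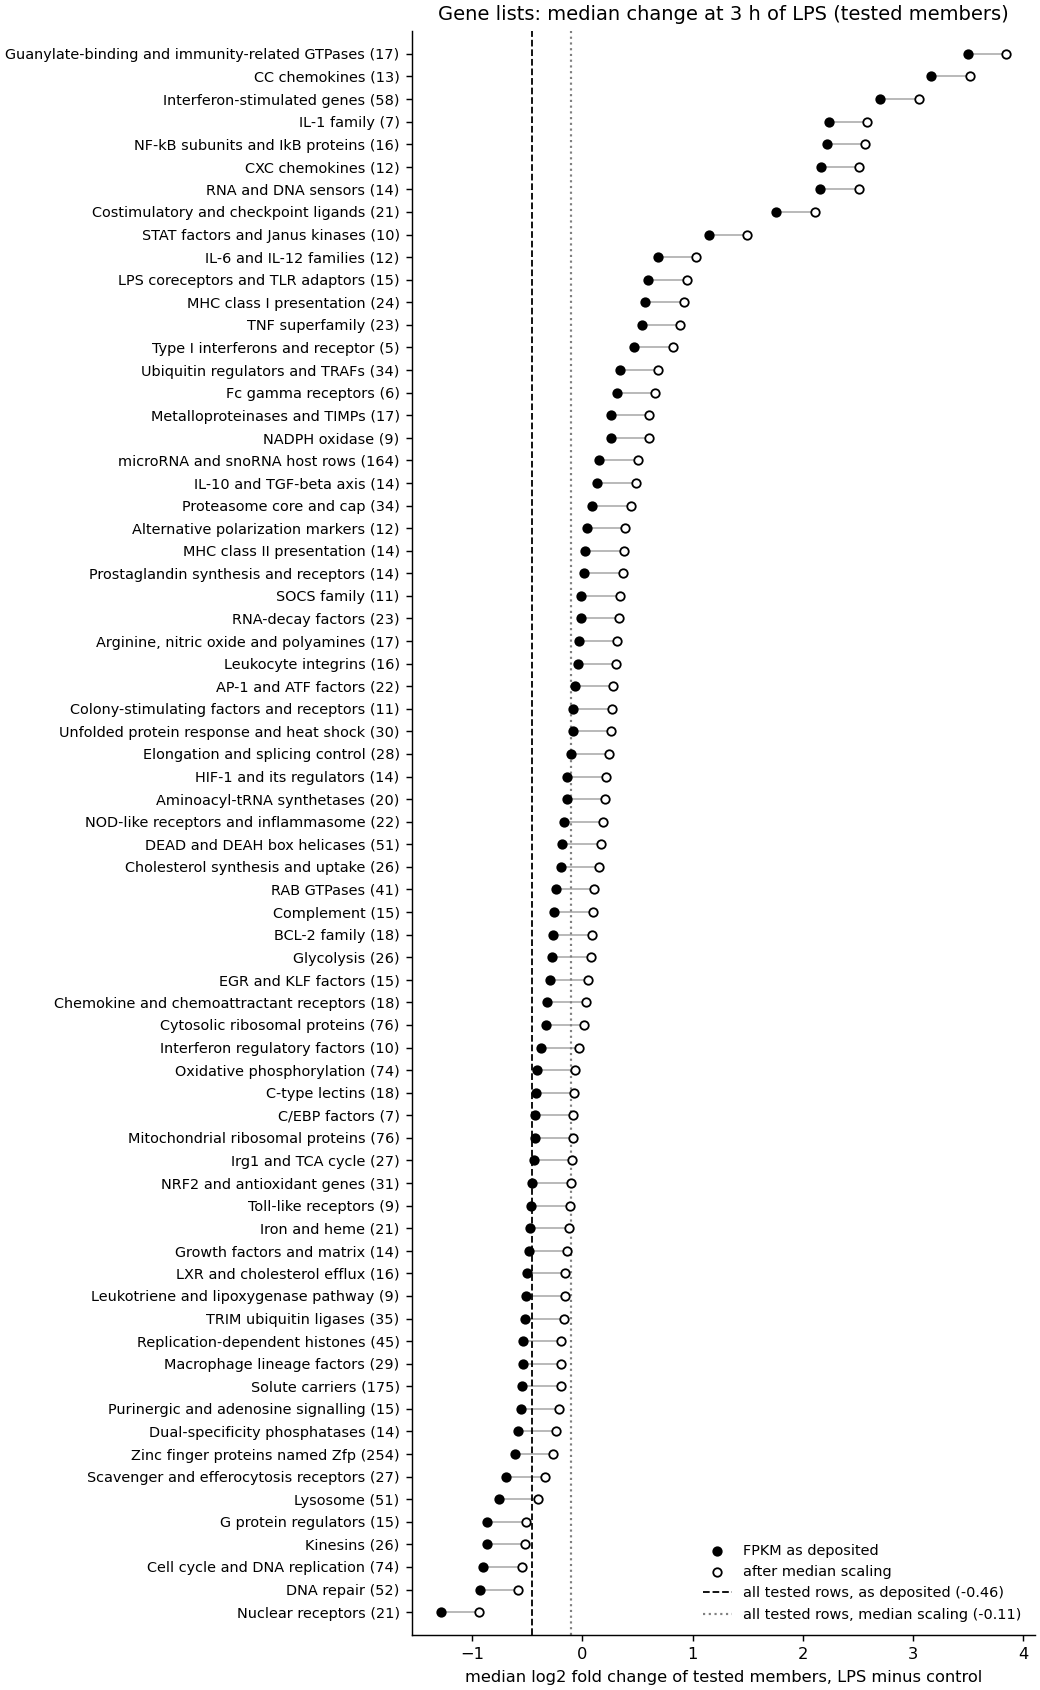
Median log2 fold change (LPS minus control) over the tested members of the gene lists described that have at least 5 of them, on the deposited values (filled) and after median scaling (open), with the number of tested members in brackets. Vertical lines are the medians of all tested rows, -0.46 and -0.11. Immunity-related GTPases, CC chemokines and interferon-stimulated genes lie furthest to the right and nuclear receptors furthest to the left under both scalings.

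The changed genes were also described by their position and structure. Along the chromosomes of mm10, 37 runs of 3 or more neighbouring tested rows were all higher by 2-fold or more, and they held 143 of the 880 rows. The longest, of 11 rows, spanned chr1:173420604-174031755 and held Aim2, Pyhin1, Mnda, Ifi204, Ifi203 and Ifi205 of the DNA-binding interferon-inducible family, with log2 fold changes from 1.32 to 5.70. The next, of 8 rows at chr11:82952102-83215154, held the Schlafen genes Slfn1 to Slfn5, Slfn8 and Slfn9. A run of 6 rows at chr19:34550694-34650009 held the Ifit genes, a run of 5 at chr3:142496934-142638008 held Gbp1, Gbp2, Gbp3, Gbp5 and Gbp7, a run of 5 at chr5:92284010-92435199 held Cxcl9, Cxcl10 and Cxcl11, and a run of 4 at chr11:82035577-82116799 held Ccl2, Ccl7, Ccl8 and Ccl12. Members of these runs are related in sequence and may share reads. For the larger set of rows lower by 2-fold or more there were 136 runs with 483 of 2118 rows. The longest, of 10 rows at chr5:140505609-142478715, held unrelated genes such as Lfng, Gna12 and Foxk1. A run of 6 at chr11:114675468-115001880 held the receptors Cd300a, Cd300lb and Cd300ld.

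Rows changed by 8-fold or more in either direction had shorter loci and fewer exons than all rows. The median genomic span of the rows, from the loci in the tables, was 19551 bases over all tested rows, 22103 bases for those higher by 2-fold or more, 17555 bases at 4-fold and 11399 bases at 8-fold. The median number of exons of the longest GENCODE vM21 transcript was 7 over all rows and 7, 6 and 5 in those sets, and transcripts of 4 exons or fewer made up 31.1% of all rows and 32.8%, 40.3% and 49.8% of those sets. For rows lower by 2-fold, 4-fold and 8-fold, the median span was 20587, 24422 and 16362 bases, the median number of exons was 8, 8 and 5, and transcripts of 4 exons or fewer made up 29.1%, 27.7% and 43.8%. After median scaling the rows lower by 8-fold had a median span of 12622 bases and 4.5 exons. The median level was 9.92 FPKM in the control samples over all rows, 6.46 FPKM for rows that rose by 2-fold or more and 9.72 FPKM for rows that fell by 2-fold or more.

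Markers of other cell types were low, with the exception of granulocyte genes. Of the 11 neutrophil markers 10 were in the tables. These summed to 394 to 989 FPKM in the control and 578 to 1181 FPKM in the LPS samples, ranges that overlap, and 0 rose and 1 fell among 10 tested, against 0 and 1 after median scaling, with a median log2 fold change of -0.14 (0.21 after scaling). The collagenase Mmp8 was the one that fell, from 16.3, 13.1 and 13.6 to 8.27, 9.02 and 8.496 FPKM (log2 fold change -0.67). T cell markers summed to 19.4 to 22.7 FPKM in the control and 2.82 to 6.28 FPKM in the LPS samples, and 1 rose and 1 fell among 3 tested, against 2 and 1 after median scaling, with a median log2 fold change of 0.19 (0.54 after scaling). In the control samples nearly all of that sum was Cd28, a costimulatory receptor, which fell from 17.8, 20.5 and 21.9 to 1.41, 1.33 and 1.21 FPKM (log2 fold change -3.18). The kinase Lck rose from 0.133, 0.133 and 0.0674 to 0.431, 3.36 and 2.79 FPKM (log2 fold change 1.37). The Lck log2 fold change lost the threshold without LPS replicate 2 or 3, or without control replicate 1, 2 or 3 (adjusted p from 0.0544 to 0.0726). The CD3 chains Cd3d, Cd3e and Cd3g stayed under 1 FPKM. Endothelial markers summed to 7.05 to 9.21 FPKM in the control and 3.85 to 5.78 FPKM in the LPS samples, and 1 rose and 2 fell among 3 tested, against 1 and 2 after median scaling, with a median log2 fold change of -0.66 (-0.32 after scaling). The VEGF receptor Kdr rose from 0.1901, 0.214 and 0.187 to 0.906, 1.92 and 2.11 FPKM (log2 fold change 1.11). The adhesion molecule Pecam1 fell from 2.28, 2.23 and 2.15 to 1.06, 1.04 and 0.992 FPKM (log2 fold change -0.66). Vwf, which carries a clotting factor, fell from 4.58, 5.54 and 6.84 to 1.84, 2.28 and 2.59 FPKM (log2 fold change -1.03).

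Mast cell markers summed to at most 3.22 FPKM in the control and to 6.31 to 23.3 FPKM in the LPS samples, and 1 rose and 0 fell among 2 tested, against 1 and 0 after median scaling, with a median log2 fold change of 1.67 (2.02 after scaling). Nearly all of the LPS sum was Hdc, the histamine-forming decarboxylase, which rose from 0.191, 0.8302 and 0.394 to 5.41, 21.6 and 19.1 FPKM (log2 fold change 3.302), with LPS replicate 1 the lowest. The B cell, dendritic cell, stromal and erythroid lists summed to at most 3.57 FPKM in any sample, with 1, 0, 1 and 1 members tested. For the B cell list this was Cd79b, which fell from 2.01, 2.31 and 3.22 to 0.486, 0.865 and 0.934 FPKM (log2 fold change -0.99). For the stromal list it was the growth factor receptor Pdgfrb, which rose from 0.0638, 0.0598 and 0.0678 to 2.24, 3.47 and 3.44 FPKM (log2 fold change 1.91). For the erythroid list it was Epor, which fell from 0.511, 1.11 and 1.02 to 0, 0.157 and 0.143 FPKM (log2 fold change -0.76) but not after median scaling (adjusted p = 0.0527). Pax5, Tek, Emcn, Col3a1, Lum, Tpsb2 and Cma1 were listed at 0 in all 6 samples. Of the macrophage markers, 2 rose and 7 fell among 12 tested, against 3 and 3 after median scaling, with a median log2 fold change of -0.33 (0.019 after scaling). Lgmn, a lysosomal protease, fell from 953, 914 and 929.6 to 587, 544 and 529.5 FPKM (log2 fold change -0.75), and Cd68, a lysosomal membrane protein, fell from 1615, 1881 and 1842 to 998, 1231 and 1143 FPKM (log2 fold change -0.66). The part of other cell types in the results was not tested.

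The same exposure was measured in the separate samples pretreated with IL-4, which share no sample with the comparison above. There, IL-4+LPS against IL-4 gave 14.7% of 10770 rows higher and 56.4% lower. Of the 880 rows higher by 2-fold or more without IL-4, 862 were tested there and 804 were called higher. Of the 2118 rows lower by 2-fold or more, 2079 were tested and 2026 were called lower. After median scaling of the IL-4 samples these numbers were 830 and 1845. The median log2 fold change of the higher set was 1.88 without IL-4 and 1.78 after it, and that of the lower set -1.33 and -1.16. The difference between the responses was not tested here.

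A call in the opposite direction after IL-4 was found for 5 of the higher and 8 of the lower rows. With median scaling of the IL-4 samples these numbers became 1 and 10. The 5 were Acat3, Adora2b, Bcl6, Nxn and Ppargc1b, which were chosen after their values were seen. Bcl6, a transcriptional repressor, had 21.1, 22.1 and 22.8 FPKM in the control, 45.7, 47.6 and 45.7 FPKM in the LPS, 17.4, 16.7 and 16.2 FPKM in the IL-4 and 13.5, 13.1 and 10.1 FPKM in the IL-4+LPS samples. The 8 were Abhd15, Ciita, Irf8, Kctd12b, Kif13b, Lrrk1, Mertk and Thbs1. Irf8 had 86.4, 76.6 and 75.7 FPKM in the control and 33.4, 31.3 and 31.2 FPKM in the LPS samples, but 54.3, 43.1 and 44.9 FPKM with IL-4 and 132.5, 205 and 200.4 FPKM with IL-4+LPS. Mertk had 11.7, 11.7 and 10.5 FPKM with IL-4 and 13.5, 21.9 and 18.8 FPKM with IL-4+LPS.

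**Figure D5:**
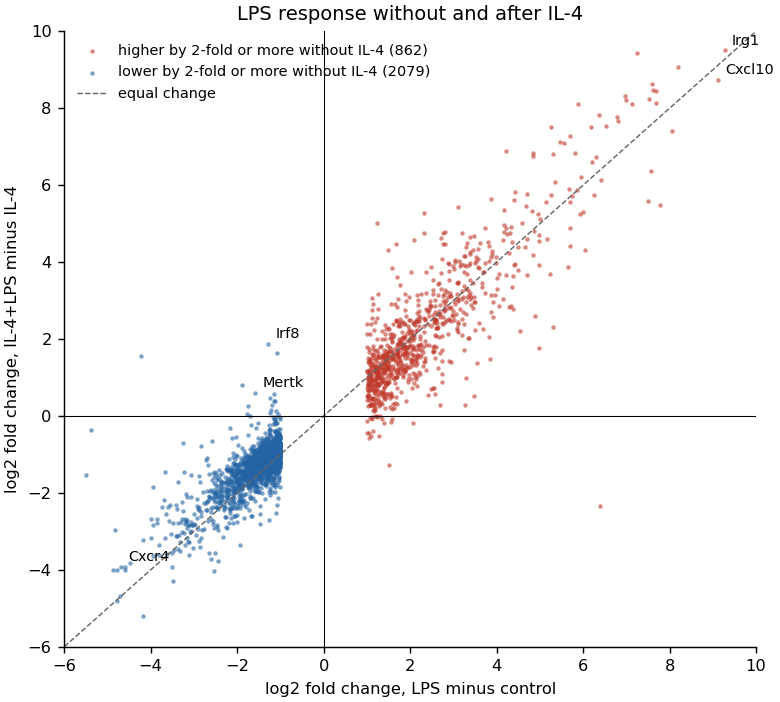
Log2 fold change of IL-4+LPS minus IL-4 (vertical) against that of LPS minus control (horizontal) for rows higher (red, 862) or lower (blue, 2079) by 2-fold or more without IL-4. Most points keep their direction, and Irf8 and Mertk lie above 0 on the vertical axis only. The dashed line marks equal change.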

How the data were processed

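RNA-seq was performed on 12 BMDM samples in 4 groups of 3, of which the control and LPS groups are compared. Per the labels and the study's methods, total RNA was extracted with Tri Reagent, poly-A libraries were made with a TruSeq kit that does not mark strand, and paired 100 base reads were mapped to mm10 with TopHat2 2.0.7 and quantified with Cufflinks 2.0.2 (versions from the submitters' processing notes). The annotation is not given in the sources used here. The authors deposited 1 table of FPKM per sample, without fragment counts, so absolute depth is unknown.

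Tables were joined on gene, locus and start-site identifiers. Rows at 1 FPKM or more in any of the 6 samples were tested on log2(FPKM + 1) with limma 3.58.1 (lmFit, eBayes with intensity trend, R 4.3.3), LPS minus control, two-sided, with Benjamini-Hochberg adjustment at 0.05. Fold changes on this scale understate low genes. The fit was tested on simulated data. The 14 alternative settings included median scaling, quantile normalization, another pseudocount (0.1), other filters, the replicate number as a block and leaving out each sample.

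Members of 80 gene lists, 9 of them of cell type markers, were all counted. The text names the 10 largest changes in each direction, the members of each list with the largest changes (up to 3 in the direction most called members took and 1 in the other, or 3 in each for large families) and 22 well-known genes. Genes and lists were chosen with earlier results of these data known. A gene's shared sequence is the percent of 50-base words of its GENCODE transcripts found in another gene. A few genes and 1 list that the rule named are not reported here.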

Additional observations from a re-analysis of the deposited data

Results flagged for a closer look

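In 8 named genes every LPS sample moved one way from the control group and every IL-4+LPS sample moved the other way from the IL-4 group. These differences were not tested. The values are the log2 effect of LPS after IL-4 minus that without IL-4. They were not median scaled, and 56.4% of rows were called lower in IL-4+LPS against IL-4. Irf8 differed by 3.16, from -1.29 without IL-4 to 1.88 after it. Cd79b differed by 2.23 (-0.99 and 1.24), Mertk by 2.19 (-1.58 and 0.61), Ciita by 1.71 (-1.25 and 0.46) and Ifngr1 by 0.85 (-0.60 and 0.26). The other 3 rose with LPS alone. Rars differed by -0.91 (0.57 and -0.34), Kif1b by -0.70 (0.30 and -0.40) and Fcgr4 by -0.70 (0.49 and -0.21).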

How the results depend on the processing

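The scaling between samples was the choice that moved the counts most. Median scaling gave 2920 higher and 3923 lower rows, with 1018 lower by 2-fold or more, and quantile normalization gave 2767, 4124 and 1031. Reversed values were the Psmd9 log2 fold change (0.0026 with median scaling, 0.0629 with quantile normalization) and, with median scaling, the Psmb1 log2 fold change (0.020), the Psma1 log2 fold change (0.026) and the Gapdh log2 fold change (0.11). A pseudocount of 0.1, another expression filter, no intensity trend and all 12 samples in the fit left the 4 counts within 1.5 times. Of these settings the pseudocount moved a count most, from 2118 to 3161 rows lower by 2-fold or more. Leaving out 1 sample gave 1609 to 1932 higher and 5600 to 6341 lower rows, and 856 to 930 and 1988 to 2268 of at least 2-fold. It moved 20 of 160 counts within gene lists by over 1.5 times, and 17 named genes lost the threshold in at least 1 such fit. The deviations of control and LPS samples with the same number correlated at 0.133, 0.0615 and 0.0825. Control replicate 1 correlated at -0.102 and -0.060 with LPS replicates 2 and 3. For control replicate 2 the values were -0.047 and -0.0044 with LPS replicates 1 and 3. For control replicate 3 they were -0.124 and 0.0688 with LPS replicates 1 and 2. LPS replicate 2 correlated best with control replicate 3. Whether samples with equal numbers share an animal or an experiment was not tested. With the replicate block, 2070 rows were higher and 6829 lower, 890 and 2122 of them by at least 2-fold, and of the named genes the Nr1h3 log2 fold change lost the threshold (adjusted p = 0.079). The block also called 4 neutrophil markers higher and 4 lower of 10, against 0 and 1 without it. Median scaling with the replicate block, chosen after seeing the data, gave 3387 higher rows and 1019 lower by 2-fold or more. Depth limits rows near 1 FPKM.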
